A study of Mus musculus with 14 samples.

Results

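Antioxidant defence genes were followed through the cell classes of the mouse spinal cord in 33 genes of the 55335 counted: the transcription factor Nfe2l2 and its inhibitor Keap1, the stress enzymes Hmox1 and Nqo1, 4 genes of glutathione synthesis and recycling, 4 glutathione peroxidases, 8 genes of the peroxiredoxins and catalase (with the sulfiredoxin Srxn1), 4 genes of the thioredoxin system, 6 glutathione transferases and 3 metallothioneins. They were chosen by symbol from these pathways, with earlier results of these data known, and all 33 symbols were found in the files. All are annotated as protein-coding genes (GENCODE, GRCm38), those that the results turn on most being Gpx3 at chr11:54902453-54910377, Prdx1 at chr4:116685544-116700822, Srxn1 at chr2:152105516-152111376, Gpx1 at chr9:108338903-108340343 and Hmox1 at chr8:75093621-75100589, with the metallothioneins side by side (Mt3 at chr8:94152607-94154146, Mt2 at chr8:94172664-94173568 and Mt1 at chr8:94179082-94180327). Droplet single-cell RNA sequencing of all cell types gave 14 libraries from spinal cords at age P115-120 (postnatal days). The nTg mice (3 libraries) carried neither alteration. The Clec7a-KO mice (4 libraries, strain B6.129S6-Clec7atm1Gdb/J) lacked Clec7a, a lectin receptor gene of myeloid cells, throughout the body. The SOD1G93A mice (3 libraries, strain B6SJL-Tg(SOD1*G93A)1Gur/J) carried a human mutant superoxide dismutase transgene, driven by the human gene's own promoter and so expressed in all cell types, which serves as a model of amyotrophic lateral sclerosis. The SOD1G93A/Clec7a-KO mice (4 libraries) had both alterations. The strains of the single-alteration groups differ in background, and the background of the nTg and SOD1G93A/Clec7a-KO mice is not given in the sources used here, so background and genotype cannot be told apart. The labels give neither the sex of the animals nor whether each library is a separate animal, so p-values measure only the spread between these libraries.

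As background, the transcription factor encoded by Nfe2l2 is held in the cytoplasm and marked for degradation by the Keap1 product, and on oxidative stress it enters the nucleus and binds antioxidant response elements in front of genes of glutathione, thioredoxin and quinone metabolism. Peroxides are removed by peroxiredoxins, which draw electrons from thioredoxin, and by glutathione peroxidases, which draw them from glutathione. Metallothioneins are small cysteine-rich proteins that bind zinc and copper and are abundant in astrocytes. Mt1 and Mt2 are switched on by a metal-sensing factor through metal response elements.

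The sequences in front of the RefSeq start of 8 members are shown because the results below turn on these genes. They are Prdx1, Srxn1, Gstm5 and Gpx3 among those that rose in microglia, Gpx1, which rose in astrocytes, and the 3 metallothioneins. Each run holds the 250 bases before the annotated start in the RefSeq table (GRCm38.p6, plus strand for all 8), 5′ to 3′, from chr4:116685349-116685598 (Prdx1), chr2:152105274-152105523 (Srxn1), chr3:107895604-107895853 (Gstm5), chr11:54902604-54902853 (Gpx3), chr9:108338830-108339079 (Gpx1), chr8:94178839-94179088 (Mt1), chr8:94172368-94172617 (Mt2) and chr8:94152357-94152606 (Mt3). In Prdx1, Srxn1 and Gstm5 the capitals mark the looser form of the antioxidant response element core, TGANNNNGC on either strand, which Gpx3 and Gpx1 did not hold in this window. In the metallothioneins they mark TGCNCNC on either strand, a looser form of the metal response element core. Its narrower forms TGCGCNC and TGCACNC are counted below.
Prdx1: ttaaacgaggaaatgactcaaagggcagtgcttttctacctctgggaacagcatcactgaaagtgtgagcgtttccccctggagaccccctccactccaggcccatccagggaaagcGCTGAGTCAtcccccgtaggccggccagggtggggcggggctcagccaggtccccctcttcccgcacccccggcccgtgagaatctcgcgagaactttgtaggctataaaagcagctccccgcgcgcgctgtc
Srxn1: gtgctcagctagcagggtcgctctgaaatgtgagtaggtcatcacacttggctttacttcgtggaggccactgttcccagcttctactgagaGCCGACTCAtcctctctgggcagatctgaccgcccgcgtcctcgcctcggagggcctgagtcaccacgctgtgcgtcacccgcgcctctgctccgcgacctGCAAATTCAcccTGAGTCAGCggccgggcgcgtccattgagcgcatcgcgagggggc
Gstm5: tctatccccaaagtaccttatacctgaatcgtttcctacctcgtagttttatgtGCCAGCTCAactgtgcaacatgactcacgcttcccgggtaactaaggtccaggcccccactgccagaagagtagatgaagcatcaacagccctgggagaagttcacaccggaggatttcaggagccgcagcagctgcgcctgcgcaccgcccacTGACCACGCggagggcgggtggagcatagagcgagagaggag
Gpx3: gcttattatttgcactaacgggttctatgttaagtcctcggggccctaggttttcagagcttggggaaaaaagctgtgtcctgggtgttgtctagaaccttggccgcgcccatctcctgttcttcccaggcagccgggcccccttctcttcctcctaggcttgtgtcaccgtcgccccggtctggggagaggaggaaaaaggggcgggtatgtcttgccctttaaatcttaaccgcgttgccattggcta
Gpx1: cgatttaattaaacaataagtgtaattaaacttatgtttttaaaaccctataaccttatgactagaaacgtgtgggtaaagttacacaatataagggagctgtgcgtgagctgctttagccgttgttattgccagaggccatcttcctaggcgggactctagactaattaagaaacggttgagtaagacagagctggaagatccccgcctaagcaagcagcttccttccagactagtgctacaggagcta
Mt1: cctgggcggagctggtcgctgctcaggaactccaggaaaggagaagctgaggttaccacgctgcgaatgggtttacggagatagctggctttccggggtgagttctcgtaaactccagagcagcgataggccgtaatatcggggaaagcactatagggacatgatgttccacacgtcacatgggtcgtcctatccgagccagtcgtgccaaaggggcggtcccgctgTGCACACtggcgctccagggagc
Mt2: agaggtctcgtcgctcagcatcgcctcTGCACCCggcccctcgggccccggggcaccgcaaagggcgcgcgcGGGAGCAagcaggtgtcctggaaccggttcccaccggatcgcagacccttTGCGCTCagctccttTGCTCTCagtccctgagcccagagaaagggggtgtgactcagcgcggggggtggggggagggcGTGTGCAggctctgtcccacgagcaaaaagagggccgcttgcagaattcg
Mt3: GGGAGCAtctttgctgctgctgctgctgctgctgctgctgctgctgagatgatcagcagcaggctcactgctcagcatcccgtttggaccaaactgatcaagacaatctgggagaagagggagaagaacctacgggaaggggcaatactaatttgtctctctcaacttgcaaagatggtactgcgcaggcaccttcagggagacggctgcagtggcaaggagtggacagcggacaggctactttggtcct

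Prdx1 held 1 match, starting 133 bases before the annotated start, Srxn1 held 3, at 158, 57 and 45 bases, and Gstm5 held 2, at 196 and 42 bases. Among the members that rose in microglia in both comparisons, Nfe2l2, Gclm, Prdx1, Prdx5, Srxn1, Txn2 and Gstm5 held the looser form in an entry. Prdx2, Prdx4, Txn1, Gpx3, Gpx4 and Cat held none, and Prdx6 and Gsr had no entry. Mt2 held 5 matches of the looser metal element form TGCNCNC, Mt1 held 1 at 23 bases and Mt3 held 1 at the far end of the window. Of the narrower forms TGCGCNC and TGCACNC, Mt2 held 1 and 2 matches and Mt1 held 0 and 1, while Mt3 held neither. The annotated start need not be the one used in these cells. By the GENCODE positions, the Gpx3 window lies wholly inside its gene and the Gpx1 window mostly so. The Prdx1, Srxn1, Gstm5 and Mt1 windows also run past the GENCODE start. The lack of a match in Gpx3 and Gpx1 therefore holds for these windows only. The same is true of the number of matches in the other members, among them the single match in Mt1. The promoter table held 35 entries for 28 members, some with several starts (all members but Hmox1, Gclc, Gsr, Prdx6 and Gsta4), and 14 of these entries (40%) held the looser antioxidant element against 35.2% of all 32851 entries. The stricter core TGACNNNGC, whose matches are all matches of the looser form too, was in 7 entries (20%) against 10.2%. The looser metal element form TGCNCNC was in 18 entries (51.4%) against 44.4%. The narrower form TGCGCNC was in 6 (17.1%) against 12.5%, and TGCACNC in 4 (11.4%) against 10.4%. These matches describe letters in a window and say nothing of binding.

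Libraries held 28819852 to 141204910 unique molecular identifiers (UMIs, each counting a captured RNA molecule), and 2558 to 10264 cells were kept in each. Class names below stand for clusters that resemble a class by its markers ("microglia" for microglia-like clusters). Microglia (50692 cells), endothelial cells (11581), ependymal cells (7635), astrocytes (5815), oligodendrocyte precursors (3907) and mural cells (1761) had at least 20 cells in every library and were tested. Clec7a gave 33 to 110 UMIs in a Clec7a-KO library and 74 to 240 in a SOD1G93A/Clec7a-KO library, against 755 to 1767 in nTg and 57449 to 101134 in SOD1G93A libraries. Each of 91 pairs of libraries had 1 to 28 cell barcodes in common (median 10), and 1001 of 88750 distinct barcodes occurred in 2 or more. SOD1G93A/Clec7a-KO replicates 3 and 4 and Clec7a-KO replicate 4, which carry the library numbers 13, 15 and 16, stood apart from the rest in several members. In microglia and astrocytes they were the high libraries of their groups for Prdx1 and the low ones for Txn1, and they were also high for Gpx1 in microglia and for Mt3 in astrocytes, so results are also given without them. SOD1G93A replicate 1 was low in the metallothioneins and in Txn1 in several classes. SOD1G93A/Clec7a-KO replicate 4 was the thinnest library, with 35 astrocytes and 28 ependymal cells.

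In microglia, 5 peroxiredoxins, sulfiredoxin, both thioredoxins, the peroxidases Gpx3 and Gpx4 and the transferase Gstm5 rose with the transgene in both comparisons. Against nTg, 16 members rose and 2 fell in SOD1G93A microglia. Among all 16673 genes tested, 33.5% were called at an adjusted p under 0.05 in that comparison, 20% higher and 13.5% lower. The median log2 fold change was 0.54 over the 33 members and 0.01 over all genes. Against Clec7a-KO, 21 members rose and 1 fell in SOD1G93A/Clec7a-KO microglia, where 46% of all genes were called, 25.6% higher and 20.4% lower. The members' median log2 fold change was then 0.85, against 0.01 for all genes. Where groups are compared within a class, levels are UMIs per 1000000 UMIs of the class (CPM) after library scaling, listed in the order of the replicate numbers, and fold changes are on a log2 scale. Levels set between classes or clusters, and sums over marker and dissociation genes, are CPM on library totals without that scaling (unscaled). Overlap is said of a transgenic group and its own control only.

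These microglial changes are relative to the bulk of genes, whose median fold change the TMM library scaling sets near 0. On library totals without TMM, an alternative chosen after seeing the data, the median over all genes was -0.47 against nTg and -0.50 against Clec7a-KO. Of all calls, 19.3% and 19.8% were then higher, against 59.7% and 55.6% with TMM. Of the members, 9 rose and 4 fell against nTg, and 12 rose and 4 fell against Clec7a-KO, where 45.3% and 57.6% of all genes were called. Prdx1, Prdx2, Prdx4, Prdx5, Prdx6, Srxn1, Gpx3, Gpx4 and Gstm5 rose in both comparisons with and without TMM. Without it, Nfe2l2, Gclm, Gsr, Txn1, Txn2 and Mgst1 lost their calls against nTg (edgeR adjusted p from 0.0664 to 0.461), and Nfe2l2, Keap1, Gsr, Txnrd2, Mt1 and Mt2 lost theirs against Clec7a-KO (0.0715 to 0.632). Cat changed sign in both comparisons (-0.05 and -0.13), as did Gclm (-0.08) and Gss (-0.05) against Clec7a-KO, none of these called. In astrocytes the same step left the median over all genes at -0.04 and -0.06, with 15 members higher and 2 lower against nTg and 16 and 2 against Clec7a-KO, where 32.5% and 34% of all genes were called.

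The mix of microglial clusters changed with the transgene too. The cluster led by Crybb1 and P2ry12, genes of resting microglia, held 95.6% ± 1.26 (SD, n = 3) of nTg and 94.4% ± 1.45 (n = 4) of Clec7a-KO microglia, against 3.58% ± 4.03 (n = 3) of SOD1G93A and 3.09% ± 2.34 (n = 4) of SOD1G93A/Clec7a-KO microglia. Within that cluster alone (14830 cells, 40 to 3349 a library), edgeR called 0 members against nTg, and only Prdx4 was called against Clec7a-KO (log2 fold change 0.90, edgeR adjusted p = 0.039). Of all 13024 genes tested in that cluster, 0.138% and 0.461% were called in these comparisons. In the transgenic groups that cluster held only 631 and 567 cells, and the part of the mix of clusters in the members' results was not tested. Summed over 22 genes known to answer to dissociation, microglia had 48297 ± 5595 CPM in nTg and 52412 ± 5350 CPM in Clec7a-KO libraries, against 20776 ± 737 CPM in SOD1G93A and 19898 ± 2430 CPM in SOD1G93A/Clec7a-KO libraries. Of these 22 genes none rose and 10 fell against nTg, and none rose and 15 fell against Clec7a-KO (18 and 20 fell on library totals without TMM scaling). Their part in the members' results was not tested.

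**Figure D1:**
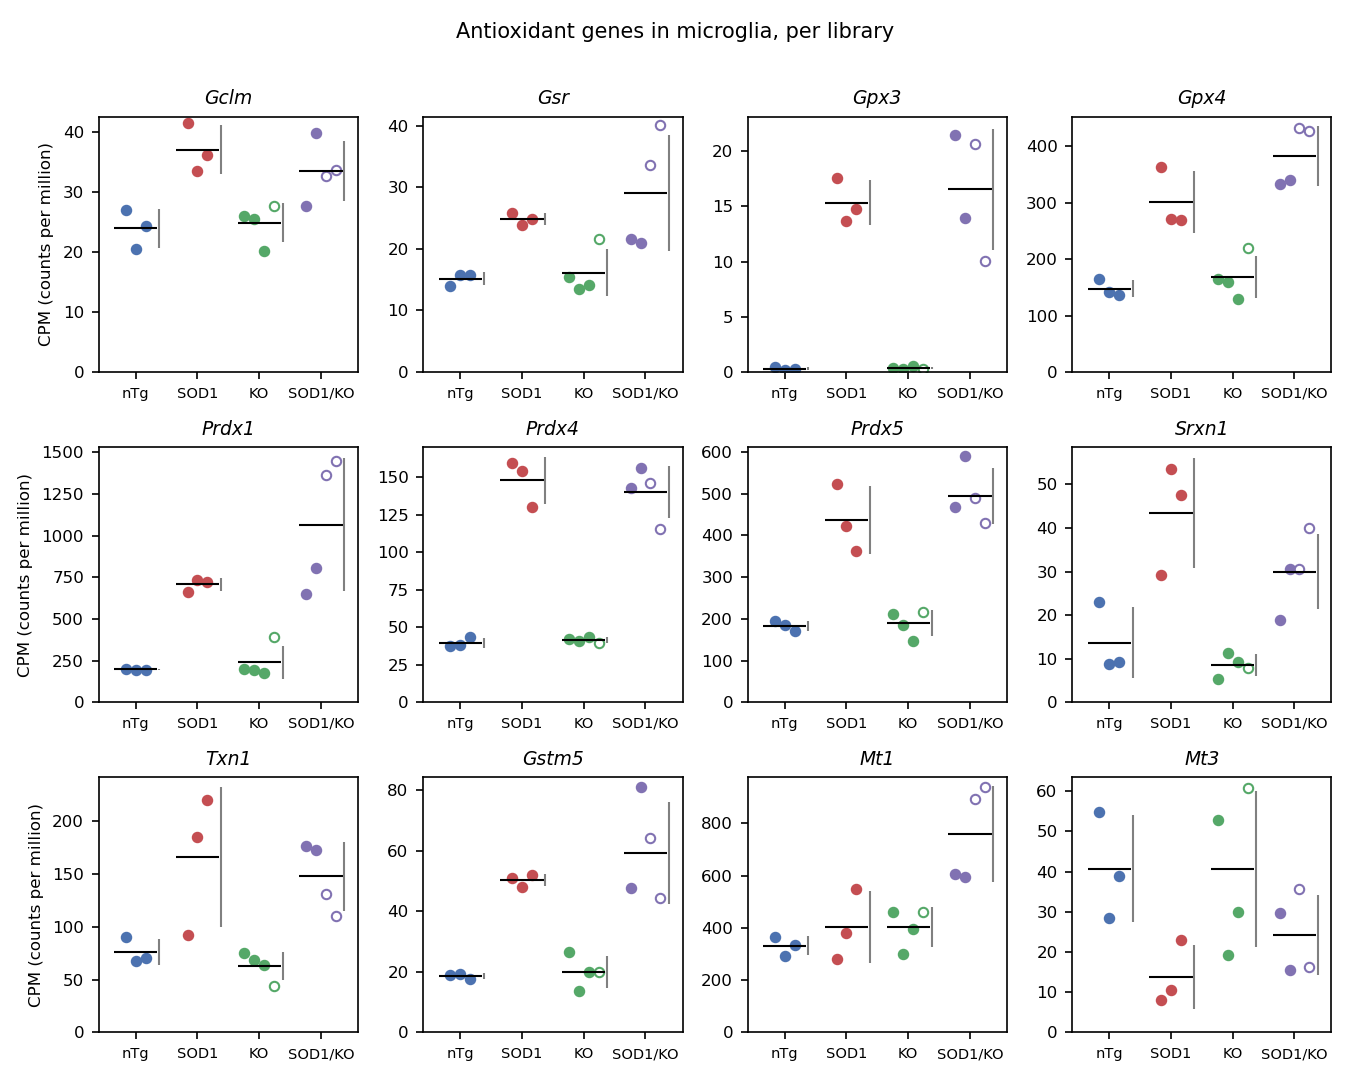
Level of 12 members in microglia, as CPM on a linear axis from 0, in each of the 14 libraries by group. The axis writes SOD1 for SOD1G93A, KO for Clec7a-KO and SOD1/KO for both. Points are libraries, open circles are the libraries numbered 13, 15 and 16, black lines are group means and grey bars ± 1 SD. Gpx3 lies under 0.6 CPM in the libraries without the transgene and between 10.1 and 21.5 CPM in those with it.

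The peroxiredoxins, thiol enzymes that reduce hydrogen peroxide, rose except for Prdx3. Prdx1 was at 199.7, 196 and 195 CPM in the nTg libraries and at 665, 734 and 722 CPM in the SOD1G93A libraries. In Clec7a-KO libraries Prdx1 was at 198, 192, 177 and 390.2 CPM, and in SOD1G93A/Clec7a-KO libraries at 651, 803, 1366 and 1447 CPM. Prdx1 rose by 1.84 (log2 scale, SE 0.33, edgeR adjusted p = 0.000705) against nTg and by 2.16 (SE 0.29, adjusted p = 3.74e-05) against Clec7a-KO. Every transgenic library lay above every non-transgenic library for this cytosolic enzyme, and within the groups the libraries numbered 13, 15 and 16 were the high ones. Prdx4 was at 37.5, 37.8 and 43.4 CPM in the nTg libraries and at 159.8, 154 and 130.2 CPM in the SOD1G93A libraries. In Clec7a-KO libraries Prdx4 was at 42.2, 40.7, 43.7 and 39.4 CPM, and in SOD1G93A/Clec7a-KO libraries at 143, 156, 146 and 116 CPM. Prdx4, the peroxiredoxin of the endoplasmic reticulum, rose by 1.90 (log2 scale, SE 0.14, edgeR adjusted p = 5.16e-07) against nTg and by 1.76 (SE 0.12, adjusted p = 1.08e-07) against Clec7a-KO. Its libraries were close together within each group, and neither transgenic group overlapped its control.

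Prdx5 was at 194, 184 and 170.4 CPM in the nTg libraries and at 524, 422 and 363 CPM in the SOD1G93A libraries. In Clec7a-KO libraries Prdx5 was at 211, 184, 147 and 216 CPM, and in SOD1G93A/Clec7a-KO libraries at 469, 589.9, 490.0 and 431 CPM. Prdx5, found in mitochondria, peroxisomes and cytosol, rose by 1.25 (log2 scale, SE 0.19, edgeR adjusted p = 0.00019) and by 1.38 (SE 0.16, adjusted p = 1.33e-05). Prdx6 was at 45.5, 42.9 and 39.7 CPM in the nTg libraries and at 103, 81.7 and 77.1 CPM in the SOD1G93A libraries. In Clec7a-KO libraries Prdx6 was at 51.6, 45.5, 32.9 and 63.1 CPM, and in SOD1G93A/Clec7a-KO libraries at 95.2, 92.9, 125 and 104 CPM. Prdx6, which uses glutathione and also cleaves phospholipids, rose by 1.03 (log2 scale, SE 0.20, edgeR adjusted p = 0.00149) and by 1.11 (SE 0.18, adjusted p = 0.000158). Prdx2 was at 88.6, 94.1 and 96.1 CPM in the nTg libraries and at 215, 171 and 155 CPM in the SOD1G93A libraries. In Clec7a-KO libraries Prdx2 was at 105, 98.6, 79.4 and 105 CPM, and in SOD1G93A/Clec7a-KO libraries at 187, 229, 189 and 162 CPM. Prdx2, a cytosolic enzyme, rose by 0.96 (log2 scale, SE 0.17, edgeR adjusted p = 0.000608) and by 0.98 (SE 0.14, adjusted p = 8.75e-05). In all 3 genes no transgenic library reached down to the range of its control group. Prdx3, the mitochondrial peroxiredoxin, was called in neither comparison, with log2 fold changes of 0.52 (adjusted p = 0.227) and 0.63 (adjusted p = 0.0744). Its SOD1G93A/Clec7a-KO libraries were at 43.7, 30.00, 83.4 and 81.9 CPM, the upper pair being replicates 3 and 4.

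Srxn1 encodes sulfiredoxin, which restores peroxiredoxins that have been over-oxidised. Srxn1 was at 23.1, 8.82 and 9.14 CPM in the nTg libraries and at 29.2, 53.5 and 47.5 CPM in the SOD1G93A libraries. In Clec7a-KO libraries Srxn1 was at 5.44, 11.4, 9.17 and 7.87 CPM, and in SOD1G93A/Clec7a-KO libraries at 18.8, 30.5, 30.7 and 40.01 CPM. Srxn1 rose by 1.65 (log2 scale, SE 0.38, edgeR adjusted p = 0.00453) against nTg and by 1.82 (SE 0.34, adjusted p = 0.000594) against Clec7a-KO. Neither transgenic group overlapped its control, although nTg replicate 1 came near SOD1G93A replicate 1 and lay above SOD1G93A/Clec7a-KO replicate 1. Cat was at 39.4, 30.8 and 39.2 CPM in the nTg libraries and at 48.8, 49.8 and 48.6 CPM in the SOD1G93A libraries. In Clec7a-KO libraries Cat was at 37.1, 36.4, 36.1 and 49.3 CPM, and in SOD1G93A/Clec7a-KO libraries at 44.3, 49.4, 54.4 and 58.9 CPM. Catalase (Cat), the hydrogen peroxide enzyme of peroxisomes, rose by 0.43 (log2 scale, SE 0.15, edgeR adjusted p = 0.044) and by 0.38 (SE 0.13, adjusted p = 0.029), with SOD1G93A above all nTg libraries and an overlap with Clec7a-KO replicate 4. Without TMM the sign of Cat changed, as given above. The Cat call against nTg was lost when any library but Clec7a-KO replicate 4 was left out (edgeR adjusted p from 0.0519 to 0.165), and that against Clec7a-KO was lost without SOD1G93A replicate 1, SOD1G93A/Clec7a-KO replicate 2, 3 or 4, or Clec7a-KO replicate 1, 2 or 3 (0.0561 to 0.133).

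Among the glutathione peroxidases, the secreted enzyme Gpx3 had the largest change of all members. Gpx3 was at 0.455, 0.157 and 0.305 CPM in the nTg libraries and at 17.6, 13.7 and 14.8 CPM in the SOD1G93A libraries. In Clec7a-KO libraries Gpx3 was at 0.389, 0.247, 0.517 and 0.312 CPM, and in SOD1G93A/Clec7a-KO libraries at 21.5, 13.97, 20.7 and 10.1 CPM. Gpx3 rose by 5.54 (log2 scale, SE 0.38, edgeR adjusted p = 3.43e-07) against nTg, 46.5-fold, and by 5.52 (SE 0.32, adjusted p = 3.64e-08) against Clec7a-KO, 46.00-fold. The nTg values rest on 15, 3 and 4 UMIs, so the fold is imprecise, but no library of either control group came near the transgenic range. Gpx4 was at 164, 142 and 136 CPM in the nTg libraries and at 364, 272 and 269 CPM in the SOD1G93A libraries. In Clec7a-KO libraries Gpx4 was at 166, 159, 130.3 and 219 CPM, and in SOD1G93A/Clec7a-KO libraries at 333, 340.2, 432 and 426 CPM. Gpx4, which reduces lipid hydroperoxides in membranes and restrains ferroptosis, rose by 1.03 (log2 scale, SE 0.20, edgeR adjusted p = 0.0013) and by 1.19 (SE 0.17, adjusted p = 8.55e-05), also without overlap. Gpx1 was at 667, 505 and 563 CPM in the nTg libraries and at 576, 548 and 552 CPM in the SOD1G93A libraries. In Clec7a-KO libraries Gpx1 was at 522, 584, 562 and 1255 CPM, and in SOD1G93A/Clec7a-KO libraries at 685, 755, 1113 and 1526 CPM. Gpx1, the abundant cytosolic enzyme, was called in neither comparison, with log2 fold changes of -0.05 (adjusted p = 0.925) and 0.48 (adjusted p = 0.19). Its highest values were those of the libraries numbered 13, 15 and 16. Gpx8 of the endoplasmic reticulum stayed under 0.7 CPM in every library.

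The thioredoxins, which hand electrons to the peroxiredoxins, were higher in both compartments. Txn1 was at 89.9, 67.3 and 70.4 CPM in the nTg libraries and at 92.4, 185 and 220.0 CPM in the SOD1G93A libraries. In Clec7a-KO libraries Txn1 was at 75.1, 68.7, 63.5 and 43.6 CPM, and in SOD1G93A/Clec7a-KO libraries at 176, 173, 131 and 109.8 CPM. Txn1 rose by 1.13 (log2 scale, SE 0.29, edgeR adjusted p = 0.00818) against nTg and by 1.23 (SE 0.25, adjusted p = 0.0012) against Clec7a-KO. SOD1G93A replicate 1 lay just above the highest nTg library, while the other SOD1G93A libraries were well above it. Txn2 was at 40.6, 43.2 and 41.9 CPM in the nTg libraries and at 80.8, 69.6 and 63.1 CPM in the SOD1G93A libraries. In Clec7a-KO libraries Txn2 was at 44.3, 42.7, 42.9 and 65.1 CPM, and in SOD1G93A/Clec7a-KO libraries at 70.8, 78.7, 116 and 106 CPM. Txn2, the mitochondrial thioredoxin, rose by 0.76 (log2 scale, SE 0.20, edgeR adjusted p = 0.0101) and by 0.93 (SE 0.18, adjusted p = 0.000686), with no overlap, and its call against nTg was lost without SOD1G93A replicate 1 (edgeR adjusted p = 0.0545). Txnrd2 was at 15.2, 21.3 and 21.1 CPM in the nTg libraries and at 29.8, 25.5 and 26.4 CPM in the SOD1G93A libraries. In Clec7a-KO libraries Txnrd2 was at 21.3, 17.2, 17.3 and 31.1 CPM, and in SOD1G93A/Clec7a-KO libraries at 31.99, 37.1, 43.4 and 43.9 CPM. Txnrd2, the mitochondrial thioredoxin reductase, rose against Clec7a-KO by 0.85 (log2 scale, SE 0.19, edgeR adjusted p = 0.00213), with Clec7a-KO replicate 4 just below the lowest transgenic library, and against nTg its log2 fold change was 0.51 (adjusted p = 0.0826). Txnrd1, the cytosolic reductase, missed the threshold in both, with log2 fold changes of 0.80 (adjusted p = 0.0919) and 0.77 (adjusted p = 0.0515). Of its nTg libraries, replicate 1 was at the SOD1G93A level, with 176, 69.2 and 66.3 CPM in nTg and 183, 181 and 181 CPM in SOD1G93A libraries.

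For the regulators, Nfe2l2 was at 236, 234 and 255 CPM in the nTg libraries and at 321, 499 and 426 CPM in the SOD1G93A libraries. In Clec7a-KO libraries Nfe2l2 was at 218, 286, 227 and 363 CPM, and in SOD1G93A/Clec7a-KO libraries at 346, 379.5, 633 and 668 CPM. Nfe2l2 rose by 0.78 (log2 scale, SE 0.27, edgeR adjusted p = 0.0376) against nTg and by 0.89 (SE 0.23, adjusted p = 0.0067) against Clec7a-KO. The SOD1G93A libraries lay above all nTg libraries, whereas the SOD1G93A/Clec7a-KO range reached into that of Clec7a-KO, whose replicate 4 was high. The call against nTg was lost without SOD1G93A replicate 2 or 3 or any 1 nTg library (edgeR adjusted p from 0.0749 to 0.14). Keap1 was at 30.9, 27.7 and 25.1 CPM in the nTg libraries and at 51.6, 34.4 and 35.99 CPM in the SOD1G93A libraries. In Clec7a-KO libraries Keap1 was at 32.4, 25.2, 27.6 and 40.9 CPM, and in SOD1G93A/Clec7a-KO libraries at 40.6, 58.8, 47.1 and 45.2 CPM. Keap1, the inhibitor, rose against Clec7a-KO by 0.61 (log2 scale, SE 0.18, edgeR adjusted p = 0.0119), a call lost without SOD1G93A/Clec7a-KO replicate 2 (adjusted p = 0.0617). SOD1G93A/Clec7a-KO replicate 1 lay below Clec7a-KO replicate 4. Against nTg the Keap1 log2 fold change was 0.54 (adjusted p = 0.0532). The stress enzymes Hmox1, which breaks down haem, and Nqo1, which reduces quinones, were called in neither comparison. Hmox1 was at 195, 210.4 and 176 CPM in the nTg libraries and at 173, 178 and 167 CPM in the SOD1G93A libraries. In Clec7a-KO libraries Hmox1 was at 164, 272, 185 and 298 CPM, and in SOD1G93A/Clec7a-KO libraries at 147, 175, 215 and 195 CPM. The Hmox1 ranges overlapped in both comparisons, with log2 fold changes of -0.17 (adjusted p = 0.572) and -0.33 (adjusted p = 0.153). Nqo1 stayed under 0.8 CPM in every library.

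In glutathione synthesis and recycling the changes were small and uneven. Gclm was at 27.1, 20.6 and 24.4 CPM in the nTg libraries and at 41.5, 33.5 and 36.3 CPM in the SOD1G93A libraries. In Clec7a-KO libraries Gclm was at 26.02, 25.5, 20.2 and 27.7 CPM, and in SOD1G93A/Clec7a-KO libraries at 27.7, 39.95, 32.7 and 33.8 CPM. Gclm, the modifier subunit of the rate-limiting ligase, rose by 0.63 (log2 scale, SE 0.16, edgeR adjusted p = 0.00941) and by 0.43 (SE 0.14, adjusted p = 0.0233). Gclc was at 38.5, 44.1 and 31.4 CPM in the nTg libraries and at 33.98, 33.6 and 37.3 CPM in the SOD1G93A libraries. In Clec7a-KO libraries Gclc was at 37.7, 47.4, 39.4 and 51.3 CPM, and in SOD1G93A/Clec7a-KO libraries at 29.98, 31.7, 33.01 and 38.5 CPM. Gclc, the catalytic subunit of the same ligase, fell against Clec7a-KO, with a change of -0.40 (log2 scale, SE 0.14, edgeR adjusted p = 0.0266), and was not called against nTg (-0.12, adjusted p = 0.579). The ranges of both subunits touched or overlapped between SOD1G93A/Clec7a-KO and Clec7a-KO libraries. Gsr was at 13.9, 15.7 and 15.8 CPM in the nTg libraries and at 25.9, 23.8 and 24.8 CPM in the SOD1G93A libraries. In Clec7a-KO libraries Gsr was at 15.4, 13.4, 14.1 and 21.7 CPM, and in SOD1G93A/Clec7a-KO libraries at 21.7, 20.9, 33.6 and 40.1 CPM. Gsr, which reduces oxidised glutathione, rose by 0.71 (log2 scale, SE 0.24, edgeR adjusted p = 0.0309) and by 0.85 (SE 0.20, adjusted p = 0.00389). Gss was at 5.79, 5.88 and 5.25 CPM in the nTg libraries and at 6.80, 6.10 and 6.72 CPM in the SOD1G93A libraries. In Clec7a-KO libraries Gss was at 5.62, 4.97, 5.68 and 7.40 CPM, and in SOD1G93A/Clec7a-KO libraries at 6.86, 7.48, 9.39 and 8.97 CPM. Gss, glutathione synthetase, rose against Clec7a-KO by 0.47 (log2 scale, SE 0.15, edgeR adjusted p = 0.0208) and was not called against nTg (0.21, adjusted p = 0.373). The SOD1G93A libraries of Gclm and Gsr lay above all nTg libraries, while Gsr and Gss overlapped between SOD1G93A/Clec7a-KO and Clec7a-KO. Against nTg, Gclm lost its call without SOD1G93A replicate 1 (edgeR adjusted p = 0.0634) and Gsr without any 1 of the SOD1G93A or nTg libraries (0.0598 to 0.0955). Against Clec7a-KO, Gclm lost its call without SOD1G93A/Clec7a-KO replicate 2, 3 or 4 or Clec7a-KO replicate 3 (0.0718 to 0.143), Gss without SOD1G93A/Clec7a-KO replicate 3 or 4 or Clec7a-KO replicate 1 or 2 (0.0534 to 0.112), and Gclc without Clec7a-KO replicate 2 or 4 (0.0667 to 0.0698).

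The glutathione transferases, which conjugate glutathione to reactive compounds, split. Gstm5 was at 18.98, 19.4 and 17.7 CPM in the nTg libraries and at 50.98, 48.1 and 52.00 CPM in the SOD1G93A libraries. In Clec7a-KO libraries Gstm5 was at 26.4, 13.5, 19.8 and 19.8 CPM, and in SOD1G93A/Clec7a-KO libraries at 47.6, 80.8, 64.2 and 44.4 CPM. Gstm5 rose by 1.43 (log2 scale, SE 0.24, edgeR adjusted p = 0.000402) against nTg and by 1.58 (SE 0.20, adjusted p = 3.15e-05) against Clec7a-KO. No transgenic library of Gstm5 overlapped its control group. Mgst3 was at 14.03, 18.2 and 16.5 CPM in the nTg libraries and at 18.98, 25.1 and 26.7 CPM in the SOD1G93A libraries. In Clec7a-KO libraries Mgst3 was at 17.4, 13.4, 15.3 and 20.5 CPM, and in SOD1G93A/Clec7a-KO libraries at 31.3, 23.2, 44.9 and 38.7 CPM. Mgst3, a membrane-bound member of the family, rose against Clec7a-KO by 1.05 (log2 scale, SE 0.20, edgeR adjusted p = 0.00068) and was not called against nTg (0.54, adjusted p = 0.082). Mgst1 was at 3.00, 1.84 and 1.52 CPM in the nTg libraries and at 6.27, 9.62 and 8.95 CPM in the SOD1G93A libraries. In Clec7a-KO libraries Mgst1 was at 5.32, 1.34, 0.969 and 2.18 CPM, and in SOD1G93A/Clec7a-KO libraries at 6.46, 3.04, 4.32 and 1.04 CPM. Mgst1, another membrane-bound member, rose against nTg by 1.93 (log2 scale, SE 0.60, edgeR adjusted p = 0.0229) and was not called against Clec7a-KO (0.59, adjusted p = 0.356). Gsta4 was at 3.88, 3.62 and 2.97 CPM in the nTg libraries and at 1.83, 1.11 and 1.84 CPM in the SOD1G93A libraries. In Clec7a-KO libraries Gsta4 was at 4.78, 2.15, 1.68 and 4.21 CPM, and in SOD1G93A/Clec7a-KO libraries at 2.86, 1.30, 1.95 and 0.984 CPM. Gsta4, which clears products of lipid peroxidation, fell against nTg, with a change of -1.14 (log2 scale, SE 0.42, edgeR adjusted p = 0.0469), and was at -0.82 (adjusted p = 0.0757) against Clec7a-KO. The SOD1G93A libraries of Mgst1 and Gsta4 did not overlap those of nTg, and those of Mgst3 in SOD1G93A/Clec7a-KO lay above all of Clec7a-KO. The Mgst1 call was lost without SOD1G93A replicate 2 or 3 or nTg replicate 2 or 3 (edgeR adjusted p from 0.0512 to 0.0787), and the Gsta4 call without any 1 SOD1G93A or nTg library (0.0585 to 0.168). Gstm1 and Gstp1 were called in neither comparison (adjusted p from 0.0912 to 0.999).

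The metallothioneins did not move together in microglia. Mt1 was at 366, 294 and 334 CPM in the nTg libraries and at 281, 379 and 550.1 CPM in the SOD1G93A libraries. In Clec7a-KO libraries Mt1 was at 463, 300.3, 395 and 459.8 CPM, and in SOD1G93A/Clec7a-KO libraries at 606, 593, 894 and 939.6 CPM. Mt1 rose against Clec7a-KO by 0.91 (log2 scale, SE 0.23, edgeR adjusted p = 0.00468) and was not called against nTg (0.28, adjusted p = 0.42), where SOD1G93A replicate 1 lay below every nTg library. Mt2 was at 22.8, 10.2 and 21.6 CPM in the nTg libraries and at 14.5, 21.1 and 32.6 CPM in the SOD1G93A libraries. In Clec7a-KO libraries Mt2 was at 18.2, 12.6, 14.3 and 8.73 CPM, and in SOD1G93A/Clec7a-KO libraries at 39.5, 23.9, 31.2 and 20.03 CPM. Mt2 rose against Clec7a-KO by 1.09 (log2 scale, SE 0.31, edgeR adjusted p = 0.011) and was not called against nTg (0.32, adjusted p = 0.515). Mt3 was at 54.9, 28.4 and 38.8 CPM in the nTg libraries and at 8.15, 10.5 and 22.9 CPM in the SOD1G93A libraries. In Clec7a-KO libraries Mt3 was at 52.8, 19.1, 29.97 and 60.7 CPM, and in SOD1G93A/Clec7a-KO libraries at 29.8, 15.6, 35.5 and 16.3 CPM. Mt3, known mainly from neurons and astrocytes, fell against nTg, with a change of -1.56 (log2 scale, SE 0.47, edgeR adjusted p = 0.0207), and was at -0.74 (adjusted p = 0.146) against Clec7a-KO. The Mt3 call was lost without SOD1G93A replicate 1 or 2 or nTg replicate 1 (0.0651 to 0.0855), and without the libraries numbered 13, 15 and 16 Mt1 was not called against Clec7a-KO (log2 fold change 0.65, adjusted p = 0.056).

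RNA from other cells was traced with astrocyte markers, 8 genes of which none was at 0 in microglia. Their summed level in microglia was 1.01% to 1.56% of the astrocyte level in nTg and 1.01% to 2.27% in Clec7a-KO libraries, against 0.498% to 0.778% in SOD1G93A and 0.348% to 0.962% in SOD1G93A/Clec7a-KO libraries. At that ratio, on unscaled CPM, astrocyte Mt3 would give 35.6 CPM in nTg microglia, where 50.3 CPM was seen, and 18.2 CPM in SOD1G93A microglia, where 12.2 CPM was seen. In Clec7a-KO and SOD1G93A/Clec7a-KO microglia the values were 58.8 against 46.3 and 35.6 against 19.8 CPM. Mt3 was above that level in 3 of 3 nTg libraries and in none of the others, so outside nTg its microglial values are at or below the background of astrocyte RNA. Ependymal Mt3, at the ratio of the ependymal markers, would give 25.9 CPM in nTg and 4.81 CPM in SOD1G93A microglia, and neuronal Mt3, at the ratio of the neuronal markers, 1.91 and 0.159 CPM. The astrocyte and ependymal values for nTg together exceed the 50.3 CPM seen there. The neuronal markers summed to 0.246% to 0.410% of the neuronal level in nTg against 0.0716% to 0.149% in SOD1G93A microglia, and 2 of the 7 tested, Snap25 (-1.71, edgeR adjusted p = 0.0134) and Stmn2 (-1.74, 0.0105), fell there. The microglial Mt3 fall is therefore not separated from the RNA of other cells. Mgst1 was above its level at the ratio in 0 of 3 nTg and 0 of 4 Clec7a-KO libraries, in 3 of 3 SOD1G93A and in 3 of 4 SOD1G93A/Clec7a-KO libraries. Mt1 was above it in all 14 libraries and Mt2 in 3 of 3 nTg, 1 of 4 Clec7a-KO, 2 of 3 SOD1G93A and 4 of 4 SOD1G93A/Clec7a-KO libraries. Astrocyte Gsta4 would give 2.40 CPM in nTg microglia, where 4.29 CPM was seen, and 0.779 CPM in SOD1G93A microglia, where 1.42 CPM was seen, so this background fell along with the call. At the ratio of the endothelial markers, endothelial Gsta4 would give 1.24 and 1.94 CPM, and microglial Gsta4 lay above that in 3 of 3 nTg and 0 of 3 SOD1G93A libraries. The low Gsta4 values are therefore not separated from the RNA of other cells.

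The labels do not give sex, and Xist, an RNA of the inactive X chromosome, differed between SOD1G93A and nTg microglia (edgeR adjusted p = 0.0482). With Xist as a covariate 11 members were called against nTg, where 19.5% of all genes were, and Nfe2l2, Gclm, Gsr, Cat, Txn1, Txn2 and Mgst1 were among those lost. Without the libraries numbered 13, 15 and 16, 22 members were called against nTg and 23 against Clec7a-KO, where 42.3% and 41.3% of all genes were.

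**Figure D2:**
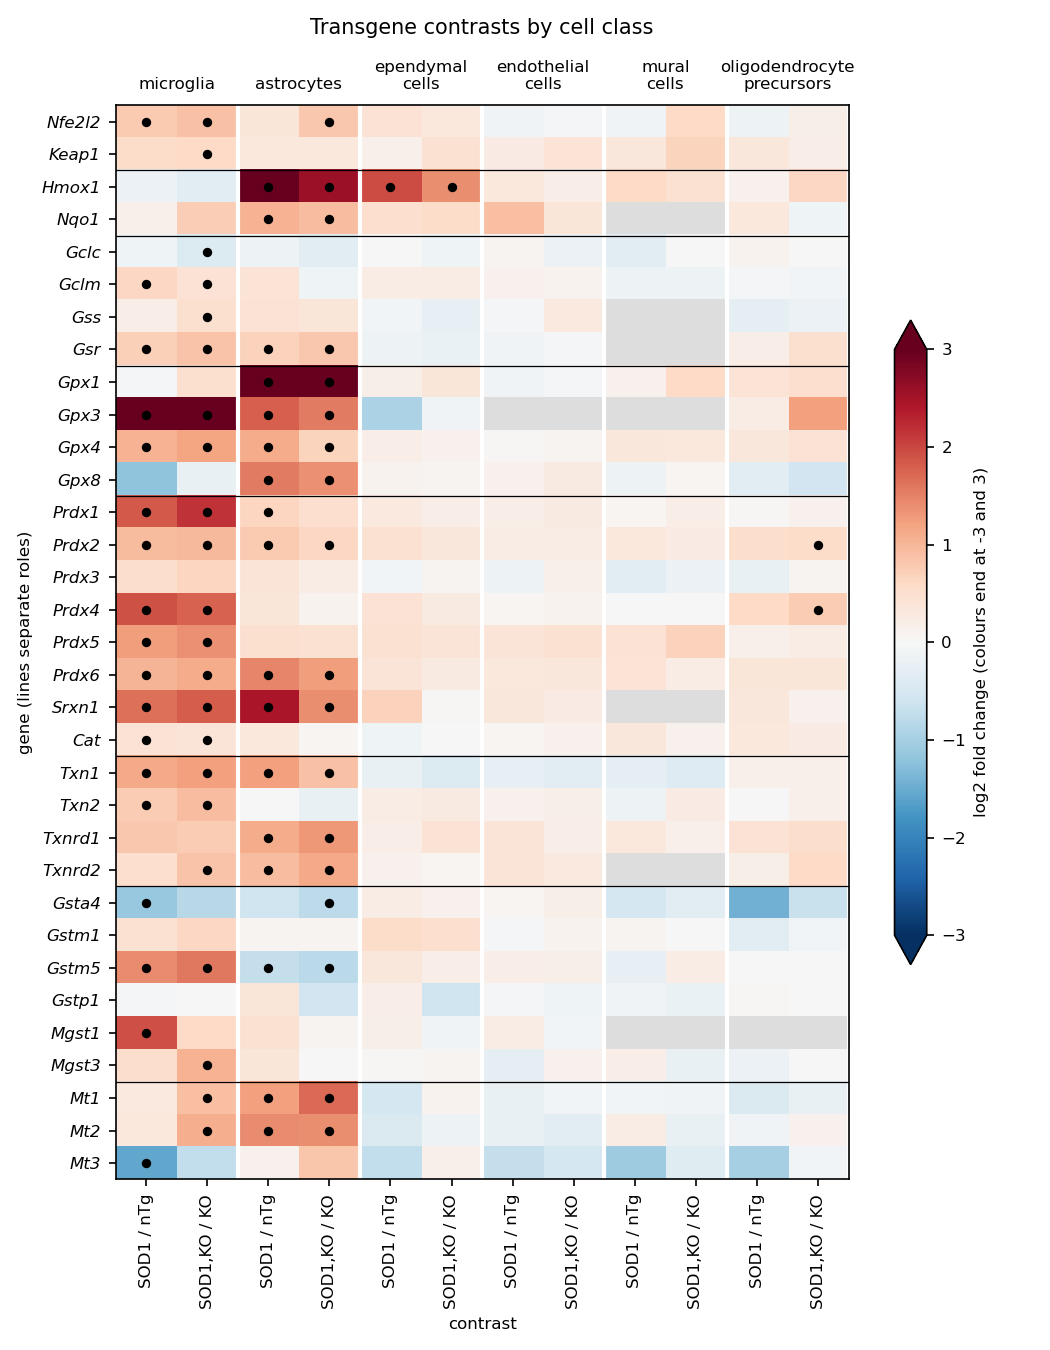
Log2 fold change of each member in each tested class for SOD1G93A against nTg and for SOD1G93A/Clec7a-KO against Clec7a-KO (written SOD1 / nTg and SOD1,KO / KO), with colours that end at -3 and 3. Dots mark an edgeR adjusted p under 0.05 and grey cells were not tested; called members stand mainly in the microglia and astrocyte columns.

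No member was called for the loss of Clec7a. In microglia edgeR called 0 of 33 members for SOD1G93A/Clec7a-KO against SOD1G93A, where 0.018% of all genes were called, and 0 for Clec7a-KO against nTg, where 0.03% were. DESeq2 also called 0 in both. At an unadjusted p under 0.05 there were 5 members in the first and 0 in the second, where 11.1% and 2.81% of all genes passed the same threshold. The 5 were Mt1 (log2 fold change 0.91), Gpx1 (0.87), Mgst3 (0.55), Txnrd2 (0.52) and Mgst1 (-1.12), with adjusted p-values from 0.446 to 0.447. The difference between both transgene responses, which asks whether the response depends on Clec7a, was called for 0 members (0 at an unadjusted p under 0.05, and 0 by DESeq2), where 0% of all genes were called and 2.45% had an unadjusted p under 0.05. Gene calls that stand in a single transgene comparison are therefore not shown to differ between them. In astrocytes the same 3 tests called 0 members by edgeR and by DESeq2, where 0.0156%, 0% and 0% of all genes were called. At an unadjusted p under 0.05 there were 4 members for SOD1G93A/Clec7a-KO against SOD1G93A (Gclm -0.57, Srxn1 -0.63, Nfe2l2 0.45 and Mt3 1.35), 0 for Clec7a-KO against nTg, and 3 for the difference of responses. Of all genes, 8.59%, 2.31% and 3.07% passed that threshold in the same tests. Those 3 were Srxn1 (-1.06), Hmox1 (-1.03) and Gclm (-0.55), all at an adjusted p of 1. In the other 4 classes these tests called 0 members by edgeR and by DESeq2. For SOD1G93A/Clec7a-KO against SOD1G93A there were 2 members at an unadjusted p under 0.05 in endothelial, 3 in ependymal and 2 in mural cells and 5 in oligodendrocyte precursors, where 6.92%, 7.43%, 9.84% and 8.4% of all genes passed that threshold and 0.00761%, 0.0262%, 0% and 0.00755% were called. For Clec7a-KO against nTg there were 0, 0, 0 and 2, where 1.53%, 1.79%, 3.15% and 4.19% of all genes passed it and 0%, 0.0262%, 0% and 0.0151% were called. For the difference of responses there were 0, 1, 1 and 0, where 1.47%, 1.98%, 3% and 2.17% of all genes passed it and 0.00761%, 0.00654%, 0% and 0% were called.

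In astrocytes the stress enzymes and glutathione peroxidases rose with the transgene. Against nTg, 16 members rose and 1 fell in SOD1G93A astrocytes, where 32.4% of 12836 genes were called, 17.3% higher and 15.1% lower. Against Clec7a-KO, 16 rose and 2 fell in SOD1G93A/Clec7a-KO astrocytes, where 33.8% of genes were called, 18.4% higher and 15.4% lower. The members' median log2 fold change was 0.48 in the first comparison and 0.62 in the second, against -0.01 and -0.04 over all genes. The haem enzyme Hmox1, the peroxidases Gpx1, Gpx3 and Gpx8, sulfiredoxin and the metallothioneins Mt1 and Mt2 rose, while the transferase Gstm5, which rose in microglia, fell. Without SOD1G93A replicate 3 the count called against nTg was 11, where 20.8% of all genes were called. A fit that leaves out the libraries numbered 13, 15 and 16 called 20 and 19 members, and 37.2% and 34.7% of all genes.

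**Figure D3:**
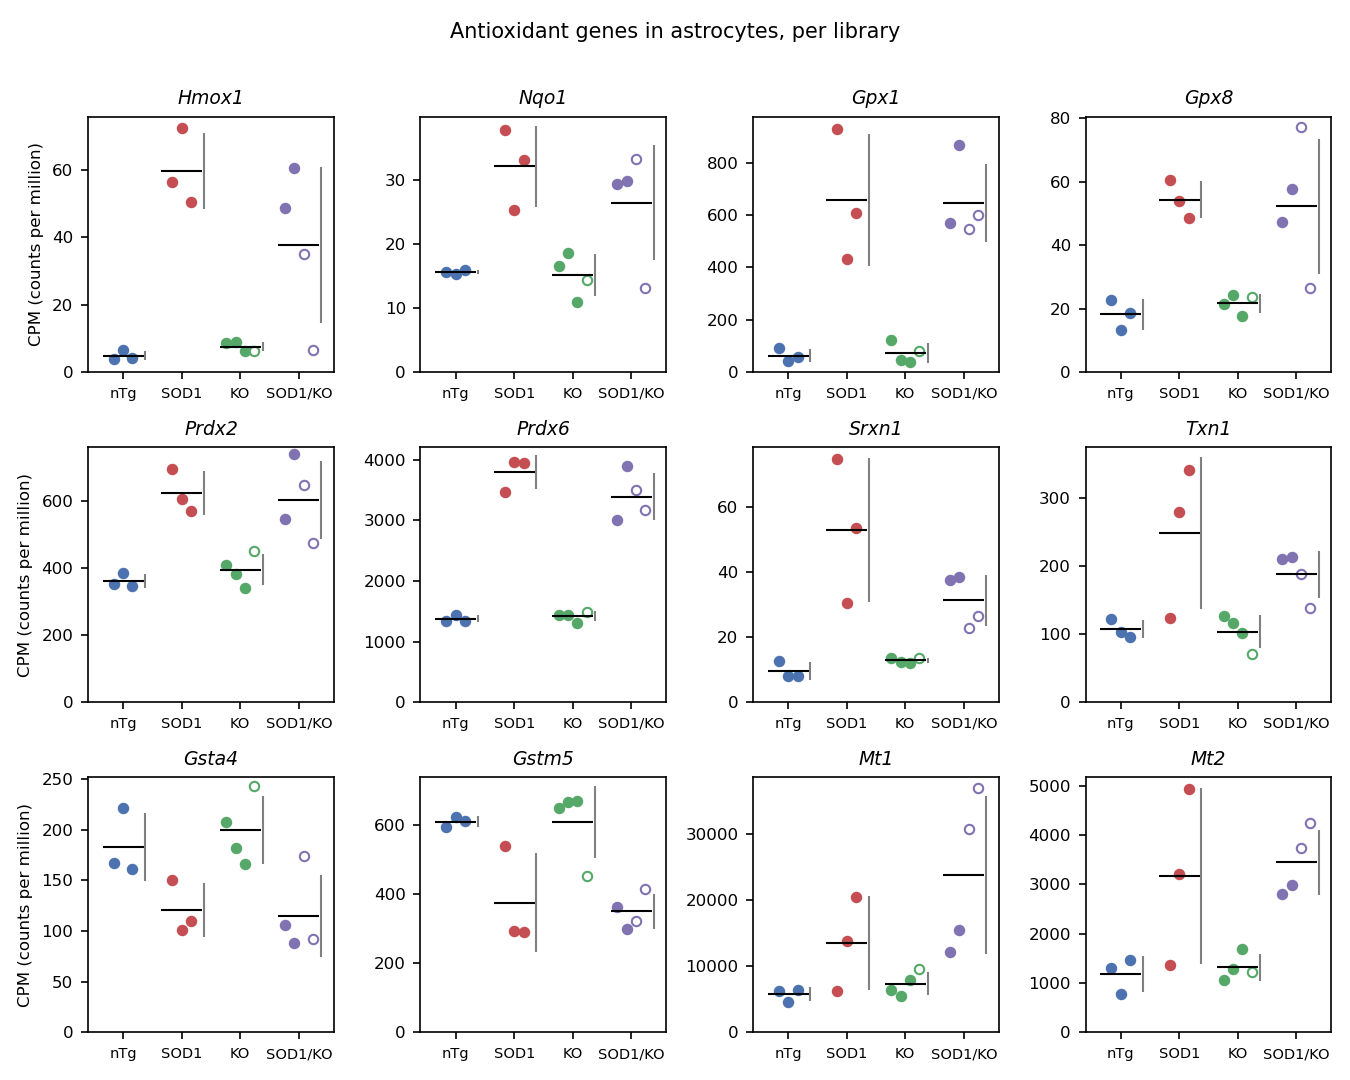
Level of 12 members in astrocytes, as CPM on a linear axis from 0, in each of the 14 libraries by group. The axis writes SOD1 for SOD1G93A, KO for Clec7a-KO and SOD1/KO for both. Points are libraries, open circles are the libraries numbered 13, 15 and 16, black lines are group means and grey bars ± 1 SD. Gpx1 lies between 39.4 and 124 CPM without the transgene and between 433 and 931 CPM with it.

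Hmox1 was at 3.98, 6.42 and 4.28 CPM in the nTg libraries and at 56.3, 72.4 and 50.6 CPM in the SOD1G93A libraries. In Clec7a-KO libraries Hmox1 was at 8.48, 8.77, 6.24 and 6.33 CPM, and in SOD1G93A/Clec7a-KO libraries at 48.6, 60.7, 35.1 and 6.60 CPM. Hmox1 rose by 3.595 (log2 scale, SE 0.30, edgeR adjusted p = 2.32e-07) against nTg and by 2.57 (SE 0.28, adjusted p = 3.4e-06) against Clec7a-KO. Hmox1 was 12.1-fold higher in SOD1G93A than in nTg astrocytes, and the SOD1G93A/Clec7a-KO range was stretched by replicate 4, whose value is a single UMI. Nqo1 was at 15.7, 15.3 and 15.9 CPM in the nTg libraries and at 37.9, 25.3 and 33.2 CPM in the SOD1G93A libraries. In Clec7a-KO libraries Nqo1 was at 16.6, 18.6, 10.9 and 14.5 CPM, and in SOD1G93A/Clec7a-KO libraries at 29.4, 29.9, 33.4 and 13.2 CPM. Nqo1, the quinone reductase, rose by 1.04 (log2 scale, SE 0.22, edgeR adjusted p = 0.00151) and by 0.94 (SE 0.22, adjusted p = 0.00272), again with replicate 4 as the low library (2 UMIs). Nfe2l2 was at 89.4, 93.2 and 99.8 CPM in the nTg libraries and at 111, 118 and 135 CPM in the SOD1G93A libraries. In Clec7a-KO libraries Nfe2l2 was at 87.6, 95.5, 98.3 and 104 CPM, and in SOD1G93A/Clec7a-KO libraries at 135, 174, 139 and 264 CPM. Nfe2l2 rose against Clec7a-KO by 0.80 (log2 scale, SE 0.18, edgeR adjusted p = 0.00197) and was not called against nTg (0.37, adjusted p = 0.149), although the SOD1G93A and nTg libraries did not overlap. Keap1 was called in neither comparison (0.31 and 0.31, adjusted p = 0.234 and 0.229).

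All 4 glutathione peroxidases rose in astrocytes taken as a whole. Within the astrocyte cluster led by S100a6, described below, Gpx3 and Gpx4 had the opposite sign against Clec7a-KO. Gpx1 was at 91.9, 41.2 and 55.6 CPM in the nTg libraries and at 931, 433 and 608 CPM in the SOD1G93A libraries. In Clec7a-KO libraries Gpx1 was at 124, 47.5, 39.4 and 79.6 CPM, and in SOD1G93A/Clec7a-KO libraries at 569, 869, 546 and 601 CPM. Gpx1 rose by 3.38 (log2 scale, SE 0.40, edgeR adjusted p = 9.97e-06) against nTg and by 3.14 (SE 0.35, adjusted p = 4.19e-06) against Clec7a-KO. The lowest transgenic library of Gpx1 was above the highest library of either control group. Gpx3 was at 9.68, 4.89 and 6.42 CPM in the nTg libraries and at 18.4, 26.2 and 26.9 CPM in the SOD1G93A libraries. In Clec7a-KO libraries Gpx3 was at 10.2, 5.16, 14.4 and 9.95 CPM, and in SOD1G93A/Clec7a-KO libraries at 38.1, 37.6, 14.1 and 0 CPM. Gpx3 rose by 1.79 (log2 scale, SE 0.40, edgeR adjusted p = 0.00237) against nTg and by 1.55 (SE 0.36, adjusted p = 0.00284) against Clec7a-KO. SOD1G93A/Clec7a-KO replicate 4 had 0 Gpx3 UMIs among 145986, which allows a level of up to 3 UMIs in that library. Replicate 3 of that group, at 14.1 CPM, also lay below the highest Clec7a-KO library (14.4 CPM), so the Gpx3 ranges overlapped. Gpx8 was at 22.8, 13.1 and 18.5 CPM in the nTg libraries and at 60.4, 54.1 and 48.7 CPM in the SOD1G93A libraries. In Clec7a-KO libraries Gpx8 was at 21.4, 24.3, 17.6 and 23.5 CPM, and in SOD1G93A/Clec7a-KO libraries at 47.3, 57.8, 77.3 and 26.4 CPM. Gpx8 rose by 1.56 (log2 scale, SE 0.23, edgeR adjusted p = 8.63e-05) against nTg and by 1.37 (SE 0.22, adjusted p = 0.000139) against Clec7a-KO. Gpx4 was at 378, 312 and 309.9 CPM in the nTg libraries and at 850.4, 612 and 700.3 CPM in the SOD1G93A libraries. In Clec7a-KO libraries Gpx4 was at 446, 349, 283 and 426 CPM, and in SOD1G93A/Clec7a-KO libraries at 577, 701, 555 and 555 CPM. Gpx4 rose by 1.11 (log2 scale, SE 0.21, edgeR adjusted p = 0.000566) against nTg and by 0.67 (SE 0.18, adjusted p = 0.00731) against Clec7a-KO. Neither Gpx8 nor Gpx4 had overlapping groups in either comparison.

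Among the peroxiredoxins the abundant astrocyte enzyme Prdx6 changed most. Prdx6 was at 1338, 1441 and 1347 CPM in the nTg libraries and at 3474, 3963 and 3947 CPM in the SOD1G93A libraries. In Clec7a-KO libraries Prdx6 was at 1433, 1448, 1310.1 and 1492 CPM, and in SOD1G93A/Clec7a-KO libraries at 3006, 3896, 3502 and 3169.7 CPM. Prdx6 rose by 1.46 (log2 scale, SE 0.19, edgeR adjusted p = 2.22e-05) against nTg and by 1.26 (SE 0.16, adjusted p = 1.88e-05) against Clec7a-KO. The groups were far apart and tight. Srxn1 was at 12.8, 7.94 and 8.08 CPM in the nTg libraries and at 74.8, 30.5 and 53.8 CPM in the SOD1G93A libraries. In Clec7a-KO libraries Srxn1 was at 13.6, 12.4, 12.1 and 13.6 CPM, and in SOD1G93A/Clec7a-KO libraries at 37.7, 38.6, 22.8 and 26.4 CPM. Sulfiredoxin (Srxn1) rose by 2.45 (log2 scale, SE 0.27, edgeR adjusted p = 4.94e-06) and by 1.39 (SE 0.27, adjusted p = 0.000657), without overlap. Prdx2 was at 353, 386 and 345 CPM in the nTg libraries and at 695, 604 and 569 CPM in the SOD1G93A libraries. In Clec7a-KO libraries Prdx2 was at 407, 381, 341 and 450.4 CPM, and in SOD1G93A/Clec7a-KO libraries at 545, 739, 648 and 475 CPM. Prdx2 rose by 0.78 (log2 scale, SE 0.19, edgeR adjusted p = 0.00433) and by 0.62 (SE 0.17, adjusted p = 0.00763). Prdx1 was at 505, 571 and 502 CPM in the nTg libraries and at 841, 852 and 784 CPM in the SOD1G93A libraries. In Clec7a-KO libraries Prdx1 was at 550.1, 548, 506 and 871 CPM, and in SOD1G93A/Clec7a-KO libraries at 635, 723, 1008 and 1182 CPM. Prdx1, which rose in microglia in both comparisons, rose in astrocytes against nTg by 0.65 (log2 scale, SE 0.24, edgeR adjusted p = 0.046) and was not called against Clec7a-KO (0.51, adjusted p = 0.0721), where Clec7a-KO replicate 4 was high. The Prdx1 call was lost without any 1 SOD1G93A or nTg library or Clec7a-KO replicate 2 or 3 (edgeR adjusted p from 0.0513 to 0.13). Prdx3, Prdx4, Prdx5 and Cat were called in neither comparison (adjusted p from 0.0635 to 0.824).

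In the thioredoxin system, Txn1 was at 122, 104 and 96.02 CPM in the nTg libraries and at 124, 280.0 and 341 CPM in the SOD1G93A libraries. In Clec7a-KO libraries Txn1 was at 126, 116, 102 and 70.5 CPM, and in SOD1G93A/Clec7a-KO libraries at 211, 214, 188 and 139 CPM. Txn1 rose by 1.22 (log2 scale, SE 0.28, edgeR adjusted p = 0.0026) against nTg and by 0.89 (SE 0.25, adjusted p = 0.00996) against Clec7a-KO. SOD1G93A replicate 1 was barely above the nTg libraries. Txnrd1 was at 45.8, 27.8 and 29.5 CPM in the nTg libraries and at 73.8, 62.8 and 85.1 CPM in the SOD1G93A libraries. In Clec7a-KO libraries Txnrd1 was at 39.2, 34.6, 29.3 and 28.9 CPM, and in SOD1G93A/Clec7a-KO libraries at 91.2, 144, 26.3 and 19.8 CPM. Txnrd1 rose by 1.12 (log2 scale, SE 0.37, edgeR adjusted p = 0.0253) and by 1.31 (SE 0.34, adjusted p = 0.00597), and its SOD1G93A/Clec7a-KO replicates 3 and 4 lay below the Clec7a-KO range. Txnrd2 was at 7.97, 7.94 and 10.2 CPM in the nTg libraries and at 15.4, 20.1 and 15.4 CPM in the SOD1G93A libraries. In Clec7a-KO libraries Txnrd2 was at 8.30, 11.9, 10.5 and 8.14 CPM, and in SOD1G93A/Clec7a-KO libraries at 17.97, 22.2, 28.1 and 19.8 CPM. Txnrd2 rose by 0.93 (log2 scale, SE 0.25, edgeR adjusted p = 0.00834) and by 1.15 (SE 0.24, adjusted p = 0.00125), with no overlap. Txn2, which rose in microglia, was at log2 fold changes of 0.01 (adjusted p = 0.98) and -0.23 (adjusted p = 0.342). Gsr was at 13.4, 12.2 and 11.9 CPM in the nTg libraries and at 18.4, 15.7 and 24.5 CPM in the SOD1G93A libraries. In Clec7a-KO libraries Gsr was at 11.3, 12.9, 11.7 and 11.8 CPM, and in SOD1G93A/Clec7a-KO libraries at 20.2, 25.1, 14.1 and 26.4 CPM. Glutathione reductase (Gsr) rose by 0.70 (log2 scale, SE 0.22, edgeR adjusted p = 0.0234) and by 0.81 (SE 0.23, adjusted p = 0.00941), while Gclc, Gclm and Gss were not called (adjusted p from 0.0799 to 0.633). Against nTg, Txnrd1 lost its call without SOD1G93A replicate 3 or nTg replicate 2 or 3 (edgeR adjusted p from 0.0907 to 0.104), and Gsr without the same libraries (0.0643 to 0.252). Against Clec7a-KO both lost it without SOD1G93A/Clec7a-KO replicate 2 (0.0626 for Txnrd1, 0.0574 for Gsr).

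Gstm5 was at 595, 625 and 611 CPM in the nTg libraries and at 541, 294 and 291 CPM in the SOD1G93A libraries. In Clec7a-KO libraries Gstm5 was at 649.8, 668, 669 and 454 CPM, and in SOD1G93A/Clec7a-KO libraries at 363, 301, 321 and 416 CPM. Gstm5 fell in both comparisons, with changes of -0.71 (log2 scale, SE 0.23, edgeR adjusted p = 0.0267) and -0.82 (SE 0.21, adjusted p = 0.0052). No transgenic library reached its control range, but the call against nTg was lost without SOD1G93A replicate 2 or 3 or any 1 nTg library (edgeR adjusted p from 0.0527 to 0.14). Gsta4 was at 167, 222 and 161 CPM in the nTg libraries and at 151, 101 and 110.0 CPM in the SOD1G93A libraries. In Clec7a-KO libraries Gsta4 was at 208, 182, 166 and 243 CPM, and in SOD1G93A/Clec7a-KO libraries at 106, 87.7, 174 and 92.4 CPM. Gsta4 fell against Clec7a-KO, with a change of -0.78 (log2 scale, SE 0.21, edgeR adjusted p = 0.00871), and was at -0.61 (adjusted p = 0.053) against nTg. Gstm1, Gstp1, Mgst1 and Mgst3 were called in neither comparison, and Gstm1 had log2 fold changes of 0.08 and 0.07.

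The metallothioneins Mt1 and Mt2 rose in astrocytes. Mt1 was at 6324, 4530.5 and 6472 CPM in the nTg libraries and at 6322, 13847 and 20480 CPM in the SOD1G93A libraries. In Clec7a-KO libraries Mt1 was at 6412, 5509, 7915 and 9524 CPM, and in SOD1G93A/Clec7a-KO libraries at 12164, 15395, 30656 and 36901 CPM. Mt1 rose by 1.23 (log2 scale, SE 0.41, edgeR adjusted p = 0.0292) against nTg and by 1.70 (SE 0.36, adjusted p = 0.00148) against Clec7a-KO. SOD1G93A replicate 1 lay within the nTg range, and SOD1G93A/Clec7a-KO replicates 3 and 4 were the highest of all. Mt2 was at 1300.5, 774 and 1478 CPM in the nTg libraries and at 1356, 3214 and 4939.7 CPM in the SOD1G93A libraries. In Clec7a-KO libraries Mt2 was at 1062, 1292, 1692 and 1219.9 CPM, and in SOD1G93A/Clec7a-KO libraries at 2811, 2992, 3736 and 4239.5 CPM. Mt2 rose by 1.42 (log2 scale, SE 0.35, edgeR adjusted p = 0.00513) against nTg and by 1.39 (SE 0.31, adjusted p = 0.00197) against Clec7a-KO. The call of Mt1 against nTg was lost without SOD1G93A replicate 2 or 3 or any 1 nTg library (edgeR adjusted p from 0.0555 to 0.187), and that of Mt2 without SOD1G93A replicate 3 (0.0528). Mt3 was at 2876, 2252 and 3156 CPM in the nTg libraries and at 1674, 2984 and 4360.5 CPM in the SOD1G93A libraries. In Clec7a-KO libraries Mt3 was at 3143, 2428, 3564 and 8008 CPM, and in SOD1G93A/Clec7a-KO libraries at 2846, 3334, 10864 and 13788 CPM. Mt3 was called in neither comparison (0.12 and 0.84, adjusted p = 0.884 and 0.164). Its high libraries were SOD1G93A/Clec7a-KO replicates 3 and 4 and Clec7a-KO replicate 4, those numbered 13, 15 and 16.

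Astrocytes fell into 2 clusters, whose mix also changed with the transgene. A cluster led by S100a6, A2m and Gfap held 8.48% ± 2.43 (SD, n = 3) of nTg and 8.32% ± 2.00 (n = 4) of Clec7a-KO astrocytes, against 49.4% ± 5.38 (n = 3) of SOD1G93A and 47.7% ± 8.27 (n = 4) of SOD1G93A/Clec7a-KO astrocytes. Within the other cluster, led by Slc7a10 (4605 cells, 17 to 991 a library), 8 members were called against nTg and 7 against Clec7a-KO, where 14.7% and 18.4% of 11399 genes were. Hmox1 (log2 fold change 3.66 and 2.52), Gpx1 (2.04 and 2.58) and Prdx6 (0.96 and 0.73) were called in both. Srxn1 (1.38) and Mt2 (1.29) were called against nTg, and Mt1 (1.33) against Clec7a-KO. Mean unscaled Hmox1 in that cluster was 4.61 CPM in nTg and 6.85 CPM in Clec7a-KO, against 56.1 CPM in SOD1G93A and 38.9 CPM in SOD1G93A/Clec7a-KO libraries. Within the S100a6-led cluster (1210 cells, 18 to 218 a library), 4 members were called in each comparison, where 5.68% and 6.53% of 6512 genes were. Hmox1 (2.65 and 1.72), Gpx1 (1.86 and 1.45) and Prdx6 (1.08 and 0.98) rose in both, and Srxn1 (2.34) against nTg. Nqo1, Gpx3 and Gpx4 reversed their sign against Clec7a-KO in the S100a6-led cluster, with values given in the closing section. Unscaled Gpx1 stood at 347, 470, 1282 and 1125 CPM there in nTg, Clec7a-KO, SOD1G93A and SOD1G93A/Clec7a-KO libraries, and Gpx3 at 53.3 CPM over all libraries against 5.19 CPM in the Slc7a10-led cluster.

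Microglial RNA in the astrocyte counts also moved with the transgene. The 12 microglial markers, none at 0 in any group's astrocytes, summed to 0.671% to 1.21% of their microglial level in nTg and 0.750% to 3.11% in Clec7a-KO astrocytes. In SOD1G93A astrocytes they summed to 4.00% to 11.3% and in SOD1G93A/Clec7a-KO astrocytes to 5.77% to 26.0%. At these ratios, on unscaled CPM, microglial Gpx1 would give 35.8 CPM in SOD1G93A and 114.98 CPM in SOD1G93A/Clec7a-KO astrocytes, where 647 and 637 CPM were seen. Microglial Hmox1 would give 10.9 and 22.2 CPM, where 58.7 and 36.8 CPM were seen, above it in 3 of 3 and 3 of 4 libraries. In Clec7a-KO astrocytes the Hmox1 background was 4.10 CPM, where 7.40 CPM was seen. For Nfe2l2, called against Clec7a-KO, microglial RNA would give 5.06 CPM in Clec7a-KO and 56.5 CPM in SOD1G93A/Clec7a-KO astrocytes, where 95.7 and 177 CPM were seen. In the SOD1G93A/Clec7a-KO libraries scaled Nfe2l2 was at 135, 174.5, 139 and 264 CPM, highest in replicate 4, which had 35 astrocytes. The part of microglial RNA in that rise was not tested. For Txnrd1 the background was 1.39 and 18.2 CPM, where 32.8 and 68.3 CPM were seen, and for Txnrd2 0.434 and 4.78 CPM, where 9.63 and 21.7 CPM were seen. All 4 SOD1G93A/Clec7a-KO libraries lay above the background for Nfe2l2, Txnrd1 and Txnrd2. The dissociation genes summed to 2759 ± 855 CPM in SOD1G93A and 4148 ± 1618 CPM in SOD1G93A/Clec7a-KO astrocytes, against 1364 ± 202 CPM in nTg and 1856.5 ± 388 CPM in Clec7a-KO. Of these 22 genes 15 rose against nTg and 16 against Clec7a-KO, and none fell. Median mitochondrial shares were 7.72% to 8.98% and 3.99% to 7.96% in the transgenic groups against 9.06% to 10.1% and 8.13% to 10.8% in their controls. The part of dissociation and RNA quality in the members' results was not tested. With Xist as a covariate Nqo1, Gsr, Prdx1, Prdx2, Txnrd1 and Gstm5 were not called against nTg.

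The transgene response was compared between classes within each library, as class minus microglia, with limma. Between astrocytes and microglia the response differed for 15 of 33 members, higher in astrocytes for 5 and lower for 10, where 37.5% of all genes differed. It was higher in astrocytes for Gpx1, by 3.08 (SE 0.32, adjusted p = 5.55e-06), Hmox1, by 2.86 (SE 0.41, adjusted p = 9.56e-05), Gpx8, by 1.94 (SE 0.51, adjusted p = 0.0081), Mt3, by 1.52 (SE 0.37, adjusted p = 0.0054), and Mt1, by 0.77 (SE 0.18, adjusted p = 0.00424). It was lower in astrocytes for Gpx3, with a difference of -4.47 (SE 0.59, adjusted p = 5.34e-05), Gstm5, at -2.28 (SE 0.23, adjusted p = 5.03e-06), Prdx4, at -1.64 (SE 0.15, adjusted p = 2.09e-06), and Prdx1, at -1.42 (SE 0.10, adjusted p = 1.51e-07). Mgst1, Txn2, Prdx5, Mgst3, Gclm and Prdx2 were also lower. Without TMM the response was higher in astrocytes for 14 members and lower for 6 (Gpx3, Gstm5, Prdx4, Prdx1, Txn2 and Prdx5), where 39.8% of all genes differed, so the split between higher and lower depends on the scaling. In microglia, Gpx8 was under 1 CPM in all 14 libraries, and Mt3 lay near or below the level that astrocyte RNA at the marker ratio would give except in nTg, where it was above it in 3 of 3 libraries before ependymal RNA is counted. With TMM the response was lower than in microglia for most members in the other classes. The shares of all genes given beside the counts cover both directions, so they do not show whether this lean is particular to the members. The counts lower and higher were 23 and 3 of 32 in endothelial cells (53.2% of all genes differed), 23 and 2 of 33 in ependymal cells (38.6%), 16 and 1 of 26 in mural cells (37.8%), and 22 and 1 of 32 in oligodendrocyte precursors (46.9%). Without TMM, the counts lower and higher were 13 and 8 in endothelial, 12 and 6 in ependymal and 8 and 4 in mural cells and 11 and 6 in oligodendrocyte precursors, where 65.7%, 47.8%, 41.2% and 58.5% of all genes differed. Prdx1, Prdx4, Gstm5 and Txn1 were among those lower in each of these 4 classes with and without TMM, Prdx1 by differences of -1.75 in endothelial, -1.74 in ependymal and -1.87 in mural cells and -1.92 in oligodendrocyte precursors. Set against the microglial cluster led by Crybb1 and P2ry12 alone, the response differed for 1 member in endothelial cells and 1 in ependymal cells, both lower there, for 0 in mural cells, and for 2 in oligodendrocyte precursors, both higher. In these fits 2.4%, 1.4%, 0.265% and 3.92% of all genes differed.

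In the other classes few members were called. In ependymal cells, which line the central canal, Hmox1 alone was called, in both comparisons, where 1.07% and 1.37% of 15293 genes were. Hmox1 was at 2.47, 2.61 and 1.58 CPM in the nTg libraries and at 11.2, 7.03 and 9.51 CPM in the SOD1G93A libraries. In Clec7a-KO libraries Hmox1 was at 3.77, 3.56, 2.78 and 3.68 CPM, and in SOD1G93A/Clec7a-KO libraries at 9.61, 10.5, 8.40 and 0 CPM. Ependymal Hmox1 rose by 1.95 (log2 scale, SE 0.33, edgeR adjusted p = 0.00385) against nTg and by 1.39 (SE 0.30, adjusted p = 0.0224) against Clec7a-KO. All SOD1G93A libraries lay above all nTg libraries, and SOD1G93A/Clec7a-KO replicate 4 held 0 Hmox1 UMIs. The call against Clec7a-KO was lost without SOD1G93A/Clec7a-KO replicate 1 or 2 or Clec7a-KO replicate 2 or 3 (edgeR adjusted p from 0.0825 to 0.118). Without SOD1G93A/Clec7a-KO replicate 4 a further member was called against nTg. The counts over the fits that leave out 1 library are given below with the shares of all genes called. At the ratio of the microglial markers in ependymal cells, microglial Hmox1 would give 7.43 CPM in SOD1G93A and 5.64 CPM in SOD1G93A/Clec7a-KO libraries, where 9.12 and 6.85 CPM were seen on unscaled CPM. The observed level was above it in 2 of 3 and 3 of 4 libraries, so the ependymal Hmox1 values are not separated from microglial RNA. With Xist as a covariate Hmox1 was not called in either comparison.

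In oligodendrocyte precursors, edgeR called 0 of 32 members for SOD1G93A against nTg (5 at an unadjusted p under 0.05, 2 by DESeq2), where 1.56% of 13245 genes were called and 11.6% had an unadjusted p under 0.05. Against Clec7a-KO it called 2, both peroxiredoxins, where 4.6% of genes were called. Prdx4 was at 97.5, 103 and 84.01 CPM in the nTg libraries and at 134, 136 and 156 CPM in the SOD1G93A libraries. In Clec7a-KO libraries Prdx4 was at 78.98, 77.9, 54.1 and 83.5 CPM, and in SOD1G93A/Clec7a-KO libraries at 139.6, 131, 123 and 109 CPM. Prdx2 was at 498, 558 and 526 CPM in the nTg libraries and at 839, 732 and 708 CPM in the SOD1G93A libraries. In Clec7a-KO libraries Prdx2 was at 567, 504, 498 and 603 CPM, and in SOD1G93A/Clec7a-KO libraries at 737, 889, 817 and 752 CPM. Precursor Prdx4 rose by 0.77 (log2 scale, SE 0.15, edgeR adjusted p = 0.00685) and Prdx2 by 0.56 (SE 0.13, adjusted p = 0.0263), and in neither did SOD1G93A/Clec7a-KO overlap Clec7a-KO. Against nTg their log2 fold changes were 0.59 (adjusted p = 0.0911) and 0.53 (adjusted p = 0.115), also without overlap. The Prdx2 call was lost without SOD1G93A/Clec7a-KO replicate 2 or 3 or Clec7a-KO replicate 1, 2 or 3 (edgeR adjusted p from 0.0524 to 0.0946). More members were called against Clec7a-KO without Clec7a-KO replicate 4, and against nTg without SOD1G93A/Clec7a-KO replicate 2. The counts are given below as ranges over the fits that leave out 1 library, with the shares of all genes called. In endothelial cells edgeR called 0 of 32 members in both transgene comparisons (0 and 3 at an unadjusted p under 0.05, 0 by DESeq2), where 0.738% and 0.89% of 13143 genes were called and 5.81% and 10.6% had an unadjusted p under 0.05. In mural cells it called 0 of 26 (1 and 4 at an unadjusted p under 0.05, 0 by DESeq2), where 0.117% and 0.519% of 7712 genes were, and 5.08% and 7.21% had an unadjusted p under 0.05. Mural cells (51 to 263 a library) were few, so a small change may not have been detectable there.

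**Figure D4:**
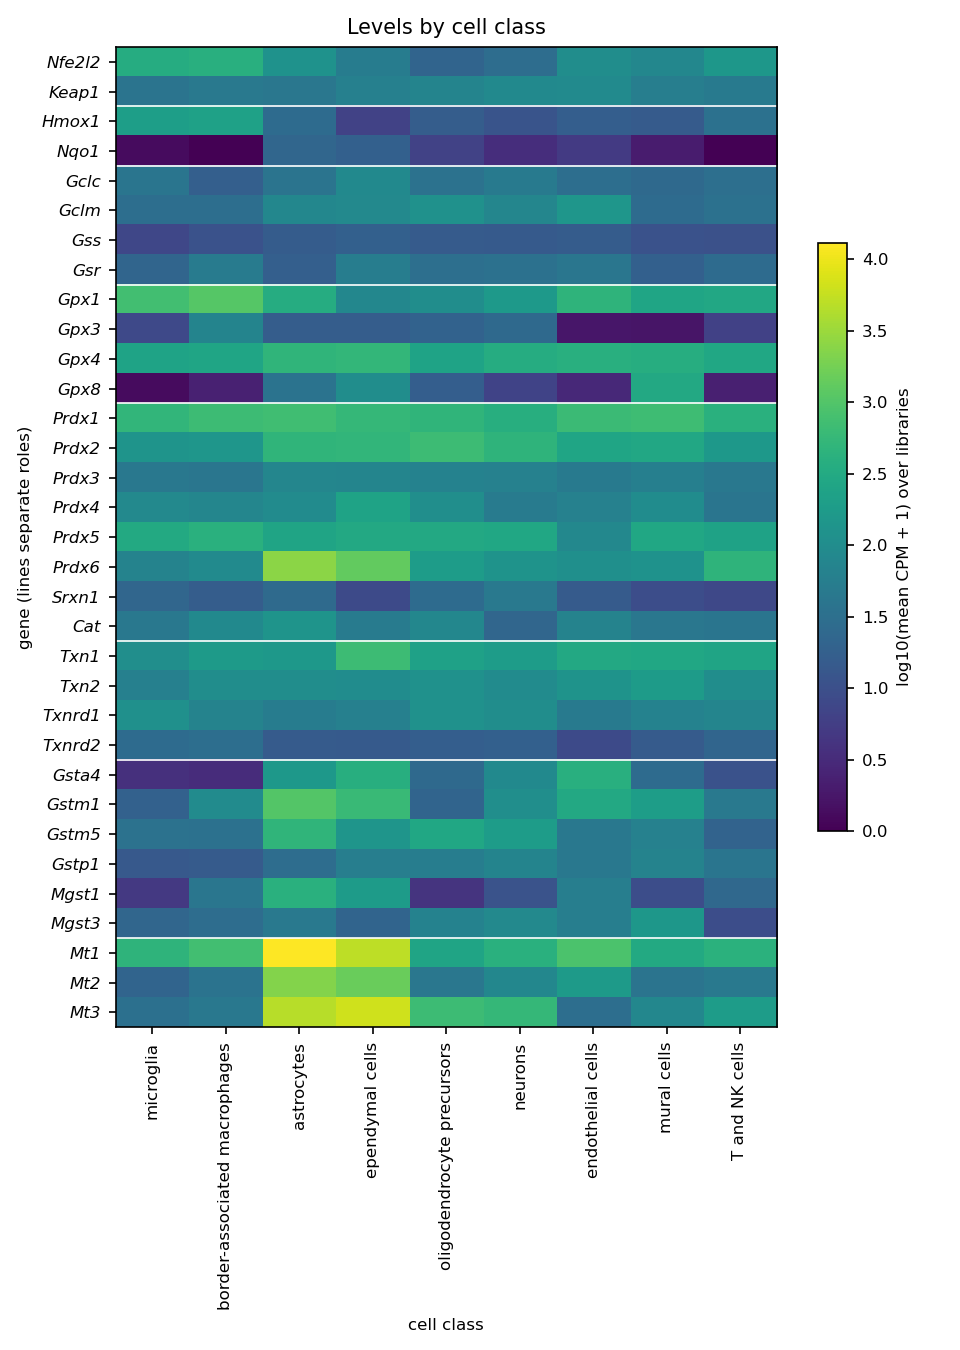
Mean level of each member in each cell class over libraries, on a colour scale of log10(mean unscaled CPM + 1), with classes in columns and members in rows by role. The metallothioneins and Prdx6 are brightest in astrocytes and ependymal cells, with Mt1 at 12968 CPM in astrocytes.

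Levels by class are given as unscaled CPM over all libraries with at least 20 cells of the class, as a description, so they differ slightly from the scaled levels given for each class above. Astrocytes had the highest mean for 10 members, ependymal cells for 7, border-associated macrophages for 6, endothelial and mural cells for 3 each, neurons and oligodendrocyte precursors for 2 each, and microglia for none. Over the 8 classes with values in every group, the leading class differed between groups for 14 of 33 members. Microglia led for Txnrd1 in nTg and SOD1G93A libraries and for Txnrd2 in SOD1G93A/Clec7a-KO libraries, besides the leads for Hmox1 and Nfe2l2 given below. Mt2 was at 1766 CPM in ependymal cells and 1188 CPM in astrocytes of nTg libraries and at 1575 and 1308 CPM in Clec7a-KO libraries, while astrocytes led in both transgenic groups. For Prdx1, border-associated macrophages led without the transgene (640.2 CPM against 529 CPM in astrocytes of nTg libraries, and 749.6 against 615 CPM in Clec7a-KO libraries) and astrocytes with it. Mt1 was at 12968 CPM in astrocytes against 5124 CPM in ependymal cells, the next class, and higher in all 14 libraries. Prdx6 was at 2456 CPM in astrocytes against 1349 CPM in ependymal cells (higher in 13 of 14 libraries). Gstm1 was at 1027 CPM in astrocytes and 605 CPM in ependymal cells, and Mgst1 at 405 and 182 CPM, each higher in 14 of 14 libraries. Ependymal cells led for Txn1 (666 CPM against 299.95 CPM in endothelial cells), Prdx4 (239.99 CPM against 107 CPM in oligodendrocyte precursors) and Mt3 (6583 CPM against 4655 CPM in astrocytes, higher in 12 of 14 libraries). Gpx8 belonged to mural cells, at 305 CPM against 103 CPM in ependymal cells and 0.317 CPM in microglia.

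Averaged over all libraries, border-associated macrophages and microglia, both of the macrophage lineage, headed the order for Hmox1 (227 and 201 CPM, macrophages higher in 9 of 12 libraries), Gpx1 (1069 and 727 CPM, 11 of 12) and Nfe2l2 (397 and 347 CPM, 8 of 12). This order did not hold in every group. For Hmox1, microglia led in nTg and Clec7a-KO libraries, and border-associated macrophages led in both transgenic groups. In SOD1G93A libraries unscaled Gpx1 was at 788 CPM in these macrophages, 647 CPM in astrocytes and 495 CPM in microglia, and Nfe2l2 at 365 CPM in microglia and 357 CPM in macrophages. Gpx3 was at 69.6 CPM in these macrophages against 24.2 CPM in neurons. Several neighbours in the order did not differ beyond their spread. Prdx1 was at 715 CPM in astrocytes and 682 CPM in mural cells, higher in 7 of 14 libraries, and Prdx3 at 77.2 CPM in astrocytes and 74.3 CPM in ependymal cells, higher in 6 of 14. In the mean over all libraries microglia were the lowest of the 9 classes for Keap1, Gss, Gpx8, Prdx2, Prdx6, Txn1, Txn2, Gstm1, Gstp1 and Mt2, although Prdx2, Prdx6, Txn1 and Txn2 rose there with the transgene.

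**Figure D5:**
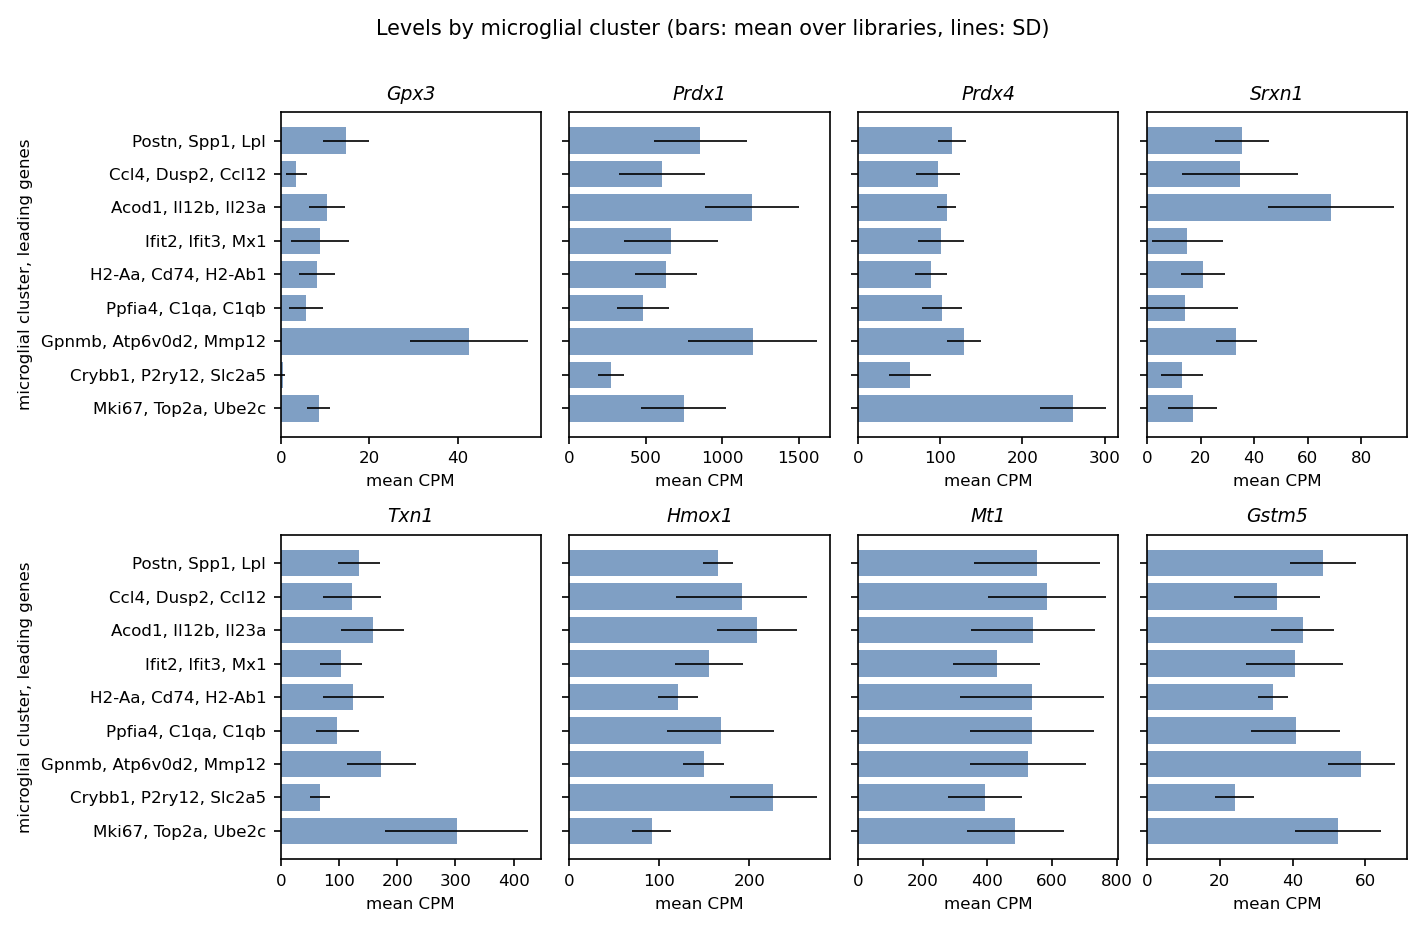
Mean level of 8 members in each microglial cluster (bars, unscaled CPM on a linear axis from 0) over libraries with at least 20 cells of the cluster, with lines of ± 1 SD and clusters named by their leading genes. Gpx3 reaches 42.6 CPM in the Gpnmb-led cluster and 0.493 CPM in the cluster led by Crybb1 and P2ry12, but the first mean is over the 7 transgenic libraries and the second over all 14.

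The members differed between the microglial clusters, given here as a description because the clusters were made from the same cells, with the members kept out of the variable genes. The clusters led by Gpnmb and by Acod1 had at least 20 cells in the 7 transgenic libraries only, while the Crybb1-led cluster had them in all 14, so a mean over all libraries mixes cluster with group. The values here are therefore means of unscaled CPM within SOD1G93A and then within SOD1G93A/Clec7a-KO libraries. Gpx3 was at 47.7 and 38.7 CPM in the cluster led by Gpnmb, Atp6v0d2 and Mmp12, genes of lipid-laden phagocytes, against 0.890 and 0.634 CPM in the cluster led by Crybb1 and P2ry12. Mgst1 was also highest in the Gpnmb-led cluster in both groups, at 25.8 and 8.67 CPM. Srxn1 was highest in both, at 78.2 and 61.7 CPM, in the cluster led by Acod1, Il12b and Il23a, genes of inflammatory activation. Prdx1 was at 1000 and 1346 CPM in the Gpnmb-led and 912 and 1411 CPM in the Acod1-led cluster, against 251 and 354 CPM in the Crybb1-led cluster. The dividing cells, led by Mki67, had the highest Prdx4 (289 and 256 CPM) and Txn1 (323 and 242 CPM). Prdx5 was at 454 and 435 CPM in the cluster led by the antigen presentation genes H2-Aa, Cd74 and H2-Ab1, against 286 and 296 CPM in the Crybb1-led cluster. At a lower clustering resolution these 3 genes, with Mrc1 and Pf4, were among those leading a cluster of 1648 cells named border-associated macrophages. That class had the highest mean Prdx5 (413 CPM over all libraries). Whether the cluster led by H2-Aa holds such macrophages was not tested. Hmox1 was at 207 and 188 CPM in the Crybb1-led cluster, and at 201 and 214 CPM in the Acod1-led cluster, so the order of these clusters differed between the groups. Without the Gpnmb-led and Mki67-led clusters, 15 members rose and 1 fell against nTg, where 31.9% of all genes were called, and 22 rose and 2 fell against Clec7a-KO, where 44.7% were.

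Other genes of the same pathways were counted from lists kept apart from the members. The lists, like the members, were chosen with earlier results of these data known, so their counts are not independent of these data. Of 24 other genes tied to Nfe2l2, 10 rose and 2 fell in microglia against nTg, and 14 rose and 4 fell against Clec7a-KO. The cystine transporter Slc7a11 (log2 fold change 3.44 and 3.57) and the epoxide hydrolase Ephx1 (1.88 and 1.88) rose most, and Trim16 (-1.36 and -1.14) and Mafk (-1.07 and -1.22) fell most. In astrocytes 8 of 23 tested rose and 1 fell against nTg, and 12 rose and 3 fell against Clec7a-KO. The small Maf factor Maff (4.12 and 2.36) and Trim16 (2.12 and 1.72) rose most there, and Slc7a11 fell (-1.32 and -1.23). Slc7a11 and Trim16 thus had opposite signs in the 2 classes. Of other glutathione genes, 11 of 21 rose and 1 fell in microglia against nTg, and 13 rose and 2 fell against Clec7a-KO. Those named by size were the transferase Gsto1 (1.94 against nTg), the glutathione-degrading Chac1 (1.73 and 2.98), Gpx7 (2.02 against Clec7a-KO), Ggt5 (-1.76 and -1.56) and Ggt7 (-1.18 against Clec7a-KO). In astrocytes 7 of 20 rose and 1 fell, and 6 rose and 3 fell, with the gamma-glutamyl enzyme Ggt5 (3.95 and 3.30) and the esterase Esd (1.70 and 1.47) highest.

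Among other thioredoxin and methionine sulfoxide genes, 7 of 17 rose and 2 fell in microglia against nTg, and 9 rose and 4 fell against Clec7a-KO. Msrb1, which repairs oxidised methionine, rose most (2.15 and 2.34), and Txnip, an inhibitor of thioredoxin, fell most (-1.62 and -1.86). In astrocytes 6 of 16 rose and 1 fell in each comparison. Sesn2, a stress-induced sestrin, rose there (1.55 and 1.25), as did Txnip against nTg, and Sesn1 fell (-0.68 and -0.98). Of metal handling genes, 4 of 12 rose and none fell in microglia against nTg, and 5 rose and 2 fell against Clec7a-KO. In astrocytes 1 of 13 rose and 1 fell, and 2 rose and 1 fell. The zinc importer Slc39a14 rose in astrocytes in both comparisons (2.07 and 1.73) and the metal transporter Slc30a10 fell (-0.96 and -1.17). The share of this list called in astrocytes was below that of all genes, 32.4% and 33.8%. A link of these calls to Mt1 and Mt2 was not tested. The microglial counts of these lists also depend on the scaling. Without TMM, 5 rose and 4 fell against nTg and 6 and 6 against Clec7a-KO among the genes tied to Nfe2l2, 5 and 5 and then 9 and 4 among the glutathione genes, 4 and 6 in both among the thioredoxin and methionine sulfoxide genes, and 0 and 2 and then 1 and 4 among the metal handling genes. In those fits 45.3% and 57.6% of all genes were called, of which 19.3% and 19.8% were higher. In astrocytes the counts of these 4 lists were the same without TMM. With TMM the shares of all genes called in these comparisons were 33.5% and 46% in microglia and 32.4% and 33.8% in astrocytes.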

How the data were processed

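Per the labels' protocols, whole spinal cords were perfused, dissociated with enzymes at 37 °C, cleared of myelin with beads and sequenced as 10x 3' libraries. The deposited matrices hold raw UMI counts per gene and cell barcode, which the authors made with Cell Ranger on build mm10 per the submitters' processing notes. The file headers carry software version 3.0.2, and how shared reads and strand were counted is not given in the sources used here, so Gstp1 and Prdx6, which have near-identical copies, are uncertain.

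Barcodes with at least 500 genes, 1000 UMIs and at most 15% mitochondrial UMIs were kept. Doublets were removed by Scrublet's score from simulated doublets, at 0.8% per 1000 barcodes, 7046 in all, leaving 89756 of 108892 barcodes. Cells were clustered with scanpy 1.11.5 (2000 variable genes without the members, 30 components, resolution 1.0, 28 clusters) and named from marker lists. A limit of 5.0 on the markers of a second class, set after seeing the data, and a depth rule left 4 clusters unnamed. Among them cluster 17 (3675 cells) made up 5.48% of nTg, 6.18% of Clec7a-KO, 3.19% of SOD1G93A and 2.41% of SOD1G93A/Clec7a-KO cells. Cluster 7 (1686 cells) made up 4.28%, 3.57%, 0.497% and 0.232%.

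The counts of each class were added up within each library, and these sums were tested with edgeR 4.0.16 (R 4.3.3; TMM scaling, filterByExpr, quasi-likelihood test, all 14 libraries, group as the only term), with Benjamini-Hochberg adjustment over all genes and a threshold of 0.05. Class differences used limma 3.58.1 on log2 CPM with a prior count of 2. The procedure was tested on simulated data. Library totals without TMM were added as an alternative after seeing the data. Members called in a tested class are named with every library's value, and of the other pathway lists only the largest calls. Members and lists were chosen with earlier results of these data known. Intervals and floors cover counting error only, and 0 columns were left out. Gene positions are from GENCODE (GRCm38) and promoters from RefSeq (GRCm38.p6).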

Additional observations from a re-analysis of the deposited data

Results flagged for a closer look

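In groups of 4 libraries, 7 of 94 values had a highest or lowest library whose gap to its neighbour, divided by the group's range, passed Dixon's 95% critical value for 4 libraries. Chance gives about 1 in 20. In microglia, Clec7a-KO replicate 4 stood above the other Clec7a-KO libraries for Cat (0.926; 49.3 CPM against 37.1 CPM in the nearest), Prdx1 (0.904; 390 against 198 CPM) and Txn2 (0.928; 65.1 against 44.3 CPM). In astrocytes the same library stood above the others for Prdx1 (0.878; 871 against 550 CPM) and below them for Gstm5 (0.910; 454 against 650 CPM). SOD1G93A/Clec7a-KO replicate 2 stood above its group in astrocytes for Gpx1 (0.830; 869 against 601 CPM) and Gpx4 (0.849; 701 against 577 CPM). Clec7a-KO replicate 4 thus accounts for 5 of the 7. The difference between both transgene responses was called for 0 of 189 members and classes by edgeR.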

How the results depend on the processing

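Of 2354 tests of called members under alternatives, 2118 kept direction and call, 222 kept direction and lost the call, and 14 reversed. On library totals without TMM, Cat against nTg (-0.050) and Cat (-0.13), Gclm (-0.085) and Gss (-0.045) against Clec7a-KO reversed in microglia. In the microglial cluster led by Crybb1 and P2ry12, which held 631 and 567 cells in the transgenic groups, the reversals were Gsr (-0.22), Cat (-0.031) and Txn1 (-0.50) against nTg, and Gclm (-0.075), Gss (-0.14), Srxn1 (-0.15) and Mt1 (-0.076) against Clec7a-KO. In the S100a6-led astrocyte cluster they were Nqo1 (-0.17), Gpx3 (-0.25) and Gpx4 (-0.19) against Clec7a-KO. For both clusters the cause was not tested.

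Counts of called members, for SOD1G93A against nTg and then SOD1G93A/Clec7a-KO against Clec7a-KO, moved as follows, with the share of all genes called in the same fit in brackets. The Crybb1-led cluster gave 0 and 1 in microglia (0.138% and 0.461%), and Xist as a covariate gave 11 against nTg (19.5%). In astrocytes the Slc7a10-led cluster gave 8 and 7 (14.7% and 18.4%) and the S100a6-led cluster 4 and 4 (5.68% and 6.53%). With doublets kept, counts were 3 and 3 in endothelial (4.14% and 4.28%), 2 and 3 in ependymal (4.31% and 8.84%), 1 and 2 in mural cells (3.01% and 3.52%), and 3 and 7 in oligodendrocyte precursors (3.87% and 10.6%). In ependymal cells they were 2 and 2 without the filter (1.92% and 2.2%), 2 and 0 with only the groups compared (1.17% and 0.886%), and 0 and 0 with Xist (0.111% and 0.49%). There they were also 2 against nTg without the libraries numbered 13, 15 and 16 (0.988%) and 2 against Clec7a-KO with library number (1.67%). In oligodendrocyte precursors they were 2 and 4 with DESeq2 (2.3% and 6.34%), 1 and 1 with only the groups compared (2.49% and 1.75%), 2 and 6 with library number (4.26% and 10.9%), and 4 and 4 with numbers 13, 15 and 16 as a covariate (3.74% and 7.51%). Against nTg they were 2 without these (2.95%) and 2 without the filter (2.22%). Without the filter, SOD1G93A/Clec7a-KO against SOD1G93A gave 1 in astrocytes (1.21%), 2 in ependymal cells (0.412%) and 1 in oligodendrocyte precursors (0.436%), where Clec7a-KO against nTg gave 1 (0.688%). Against the Crybb1-led cluster, class differences numbered 1 in endothelial (2.4%), 1 in ependymal (1.4%) and 0 in mural cells (0.265%) and 2 in oligodendrocyte precursors (3.92%).

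Leaving out each library gave 12 to 20 (23% to 35.8% of all genes) and 19 to 23 (39.3% to 48.6%) in microglia, 11 to 19 (20.8% to 34.3%) and 16 to 20 (23.2% to 34.1%) in astrocytes, 1 to 2 (0.637% to 1.39%) and 0 to 1 (0.543% to 2.32%) in ependymal cells, and 0 to 1 (0.712% to 1.78%) and 1 to 6 (1.75% to 9.19%) in oligodendrocyte precursors. Class differences ranged from 12 to 16 (astrocytes, 30.6% to 41.9%), 23 to 26 (endothelial, 47% to 53%), 21 to 26 (ependymal, 32.4% to 44.7%), 13 to 17 (mural, 31.7% to 38.1%) and 20 to 23 (oligodendrocyte precursors, 41.1% to 46.9%).

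Replicate numbers were not used to pair the libraries in the main fit. The 19 same-numbered pairs correlated from -0.18 to 0.35 (median 0.084), 8 above 0.1. The 54 pairs with different numbers correlated from -0.44 to 0.48 (median -0.031), 11 above 0.1. The range of same-numbered pairs lies within that of the others, but their median is higher. With the replicate block, 21 and 27 members were called in microglia (38.3% and 50.9% of all genes), 17 and 19 in astrocytes (33.3% and 33.6%), 1 and 0 in ependymal cells (1.49% and 1.46%), and 1 and 5 in oligodendrocyte precursors (2.79% and 7.78%).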
